A study of Mus musculus with 16 samples.

Results

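Laminins are the cross-shaped extracellular proteins of basement membranes, and integrins are the cell surface receptors that hold cells to laminins, other matrix proteins and other cells. The genes described here are all mouse genes whose symbol names a laminin alpha, beta or gamma chain or an integrin alpha or beta subunit. Of 43432 genes in the count tables, 37 matched, namely 11 laminin, 18 integrin alpha and 8 integrin beta genes. All 37 had 10 or more reads in 4 or more of the 16 libraries, as did 19859 genes in all, and all 37 passed the filter on low counts. Itga2b, Itga7, Itga10, Itga11, Itgad, Itgae, Itgax, Itgb7 and Lamc3 averaged under 6 counts scaled to library size (CPM) in every group, and their values carry more counting error than those of the other members. Together the members held 0.1234 to 0.2423% of the reads of a library.

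Thymic epithelial cells, of which medullary ones show tissue antigens to developing T cells, were sorted from C57BL6 mice. The mice carried 2 alleles, Aire-CreERT2 and Ai14, with which tamoxifen lets cells that express Aire and their progeny turn on a red fluorescent protein (RFP). All groups came from mice of both sexes, 5 to 6 weeks old, that had been given 2 mg of tamoxifen and were studied 7 days later, with 12 thymi pooled for each biological replicate. Live CD45-, EPCAM+ cells were divided into RFP+ MHCIIlo, RFP- MHCIIlo, RFP+ MHCIIhi and RFP- MHCIIhi cells on reporter and surface MHC class II levels, with 4 libraries in each of the 4 groups. All 4 groups carry the same alleles and received the same drug, so that the RFP- groups are unlabelled cells of the same mice and not untreated mice. RFP- cells can also hold cells that did not recombine or that began to express Aire after the pulse: Aire itself averaged 587 ± 32.5 CPM for RFP+ MHCIIhi cells and 979 ± 56.1 CPM for RFP- MHCIIhi cells (SD, n = 4 each).

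In a basement membrane 1 alpha, 1 beta and 1 gamma laminin chain join into a trimer, and trimers assemble into a sheet that is tied to type IV collagen by nidogens and perlecan. Trimers with the Lama3 and Lamb3 chains are known from stratified epithelia and bind the integrin made of Itga6 and Itgb4, which anchors keratin filaments in hemidesmosomes. Trimers with the Lama5 chain, joined to Lamb1 and Lamc1, are broadly found under epithelia and are bound by Itga3 and Itga6 in pairs with Itgb1. Other integrins read collagens (Itga1, Itga2, Itga10, Itga11), fibronectin and its relatives (Itga5, Itga8, Itgav), VCAM-1 and MAdCAM-1 (Itga4) or leukocyte ligands (the Itgb2 family), and the pairs of Itgav with Itgb6 or Itgb8 bind and activate latent TGF-beta.

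The promoters of 5 members on which the results below turn are shown first, since the laminin chains among them fell and Itgb8 and Itgb6 rose in labelled against unlabelled MHCIIlo cells. Each is the 250 bases before a transcription start that RefSeq lists (build GRCm38.p6), 5′ to 3′ on the gene's strand, with motif matches in capitals.
Lamb1 (chr12:31265043-31265292, plus strand): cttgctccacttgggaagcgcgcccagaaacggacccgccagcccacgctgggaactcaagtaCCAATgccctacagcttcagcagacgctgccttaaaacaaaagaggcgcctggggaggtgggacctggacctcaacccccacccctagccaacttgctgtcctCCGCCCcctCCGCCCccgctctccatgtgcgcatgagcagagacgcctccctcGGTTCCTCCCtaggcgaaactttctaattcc
Lamb3 (chr1:193301744-193301993, plus strand): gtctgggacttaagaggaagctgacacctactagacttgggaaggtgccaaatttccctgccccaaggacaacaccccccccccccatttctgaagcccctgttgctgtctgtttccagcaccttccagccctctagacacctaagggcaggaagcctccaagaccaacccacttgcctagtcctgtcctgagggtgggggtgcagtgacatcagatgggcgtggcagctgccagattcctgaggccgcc
Lama5 (chr2:180225860-180226109, minus strand): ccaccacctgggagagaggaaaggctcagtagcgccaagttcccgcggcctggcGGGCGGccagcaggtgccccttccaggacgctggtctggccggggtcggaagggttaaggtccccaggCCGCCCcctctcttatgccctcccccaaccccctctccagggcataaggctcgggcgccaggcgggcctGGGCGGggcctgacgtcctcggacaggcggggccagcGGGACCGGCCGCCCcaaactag
Itgb8 (chr12:119238277-119238526, minus strand): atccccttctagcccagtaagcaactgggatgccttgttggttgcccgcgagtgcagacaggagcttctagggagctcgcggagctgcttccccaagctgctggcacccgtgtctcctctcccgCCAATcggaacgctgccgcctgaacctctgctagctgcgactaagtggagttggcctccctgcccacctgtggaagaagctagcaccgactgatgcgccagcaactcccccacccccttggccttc
Itgb6 (chr2:60722604-60722853, minus strand): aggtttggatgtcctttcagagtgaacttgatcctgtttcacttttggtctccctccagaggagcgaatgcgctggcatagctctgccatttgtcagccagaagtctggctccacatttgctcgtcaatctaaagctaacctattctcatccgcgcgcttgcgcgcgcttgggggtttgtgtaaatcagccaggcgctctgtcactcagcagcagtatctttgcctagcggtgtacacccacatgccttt

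In those letters the Lamb1 window held a CCAAT box 187 bases before the start, GC boxes (GGGCGG) 84 and 75 bases before it and an NF-kB motif (GGGA and CC with any 4 bases between) 31 bases before it. The Lama5 window held 4 GC boxes and an NF-kB motif, the Itgb8 window held a CCAAT box 126 bases before the start, and the Lamb3 and Itgb6 windows held no match. The letters searched on both strands were also TGANTCA for AP-1, TATAAA for the TATA box, CCGGAAG for ETS and the p53 family half-site. The NF-kB match of Lama5 overlaps the GC box nearest the start, and another start listed for Lamb3 has an NF-kB motif 226 bases before it. Of 32851 promoters of the same length, 32.7% held the GC box, 33.8% CCAAT, 17.6% the NF-kB motif, 12.4% TATAAA, 7.13% the p53 family half-site, 6.91% the ETS motif and 6.75% the AP-1 motif. RefSeq promoters were matched for 23 of the 37 members, of which 8 held a GC box, 6 an NF-kB motif and 4 a CCAAT box.

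Libraries held 7.93 to 19.46 M counted reads. The RFP+ MHCIIlo libraries were made from 19400 to 20500 cells, against 80500 to 164000 cells in the other groups. Replicates 1 to 3 of RFP+ MHCIIlo had the lowest totals of all libraries (9.58, 7.93 and 9.44 M), while replicate 4 had 12.93 M. The gates could be seen in the transcripts: H2-Aa, an MHC class II chain, averaged 961 ± 187 and 1319.7 ± 291 CPM for RFP+ and RFP- MHCIIlo cells, against 5381 ± 396 and 4703 ± 157 CPM for RFP+ and RFP- MHCIIhi cells (SD, n = 4 each). Epcam was at 322 to 621 CPM in the 16 libraries. Markers of other cell types were also read. The summed level of 10 mesenchymal markers was 86.2 to 229 CPM in RFP+ MHCIIlo, 592 to 1204 CPM in RFP- MHCIIlo, 178 to 206 CPM in RFP+ MHCIIhi and 295 to 348 CPM in RFP- MHCIIhi libraries. For 5 pan-leukocyte markers it was 346 to 430.4 CPM, 138 to 171 CPM, 946 to 1058 CPM and 773 to 907 CPM in the same 4 groups, and for 12 thymocyte markers 28.0 to 103 CPM, 24.1 to 51.1 CPM, 85.3 to 149 CPM and 326 to 758 CPM. For 5 cortical thymic epithelial markers it was 304 to 367 CPM, 845 to 1020 CPM, 713 to 1030 CPM and 2235 to 3847 CPM in the same 4 groups. All 5 were lower in RFP+ MHCIIhi and in RFP- MHCIIlo, each against RFP- MHCIIhi, where 21.2% and 35.6% of all genes were lower. The part of cortical cells in the differences from RFP- MHCIIhi was not tested. No marker of these lists was at 0 in a whole group. Pairs of RFP+ MHCIIlo libraries were also compared by a chi-square of their read counts per degree of freedom. It was 4.66 between replicates 2 and 3. From these, replicate 1 differed by 10.8 and 10.7 and replicate 4 by 24.7 and 31.6. In sorted populations, fewer cells of a type and less RNA per cell cannot be told apart.

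Across the 4 groups, most laminin genes had their highest mean in unlabelled MHCIIlo cells. So did the laminin receptor genes Itga3, Itga6, Itgb1 and Itgb4, and also Itga5, Itga9, Itga10, Itgav and Itgb7. Itga7, a further laminin receptor gene, had its highest mean in RFP- MHCIIhi, and the remaining integrins were spread over the other groups. Of 11 laminin genes, 9 had their highest mean in RFP- MHCIIlo, 8 of them with all 4 libraries above the other 12. Of 26 integrin genes, 9 were highest in RFP- MHCIIlo, 10 in RFP- MHCIIhi, 5 in RFP+ MHCIIhi and 2 in RFP+ MHCIIlo, and 6, 4, 3 and 1 of these cleared the other 12 libraries. Such counts were not made over all tested genes, so whether these are unusual cannot be told. On the scale of CPM per kb of exon, the laminin alpha chains summed to 13.8 ± 1.34 in RFP+ MHCIIlo, 41.2 ± 3.42 in RFP- MHCIIlo, 13.5 ± 0.226 in RFP+ MHCIIhi and 11.4 ± 0.679 in RFP- MHCIIhi (SD, n = 4 each). The summed integrin beta level was 76.5 ± 7.99, 108 ± 3.59, 75.0 ± 4.01 and 77.4 ± 4.89 CPM per kb in the same 4 groups, so that it varied less than the laminin sum.

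The label comparison among MHCIIlo cells asks what sets cells with an Aire-expressing past apart from the unlabelled MHCIIlo cells. Tested by edgeR's quasi-likelihood fit with Benjamini-Hochberg adjustment over 19617 genes and a threshold of 0.05, 7 of 37 members rose with the label and 18 fell, with a median log2 difference of -0.58. Over all tested genes 28.9% rose and 22.7% fell (51.6% in either direction), with a median of 0.07. Laminins accounted for 8 of the falls and no rise (median -1.68), integrin alpha genes for 5 rises and 7 falls, and integrin beta genes for 2 rises and 3 falls. Between RFP- MHCIIlo and RFP- MHCIIhi cells, 17 members were higher and 14 lower (background 33.5% and 35.6%, 69.1% in either direction), and 8 of 11 laminins were among the higher ones. Between RFP+ MHCIIlo and RFP+ MHCIIhi cells 10 were higher and 15 lower (background 27.5% and 28.1%, 55.6% in all). Between RFP+ MHCIIhi and RFP- MHCIIhi cells 8 were higher and 16 lower (background 23.8% and 21.2%, 45% in all). Without RFP+ MHCIIlo replicates 1 and 4 both, 26 members passed in RFP+ MHCIIlo against RFP- MHCIIlo, where 25 did with them, and 25 in RFP+ MHCIIlo against RFP+ MHCIIhi, where also 25 did. The 4 comparisons share groups pairwise and are not independent of each other.

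**Figure D1:**
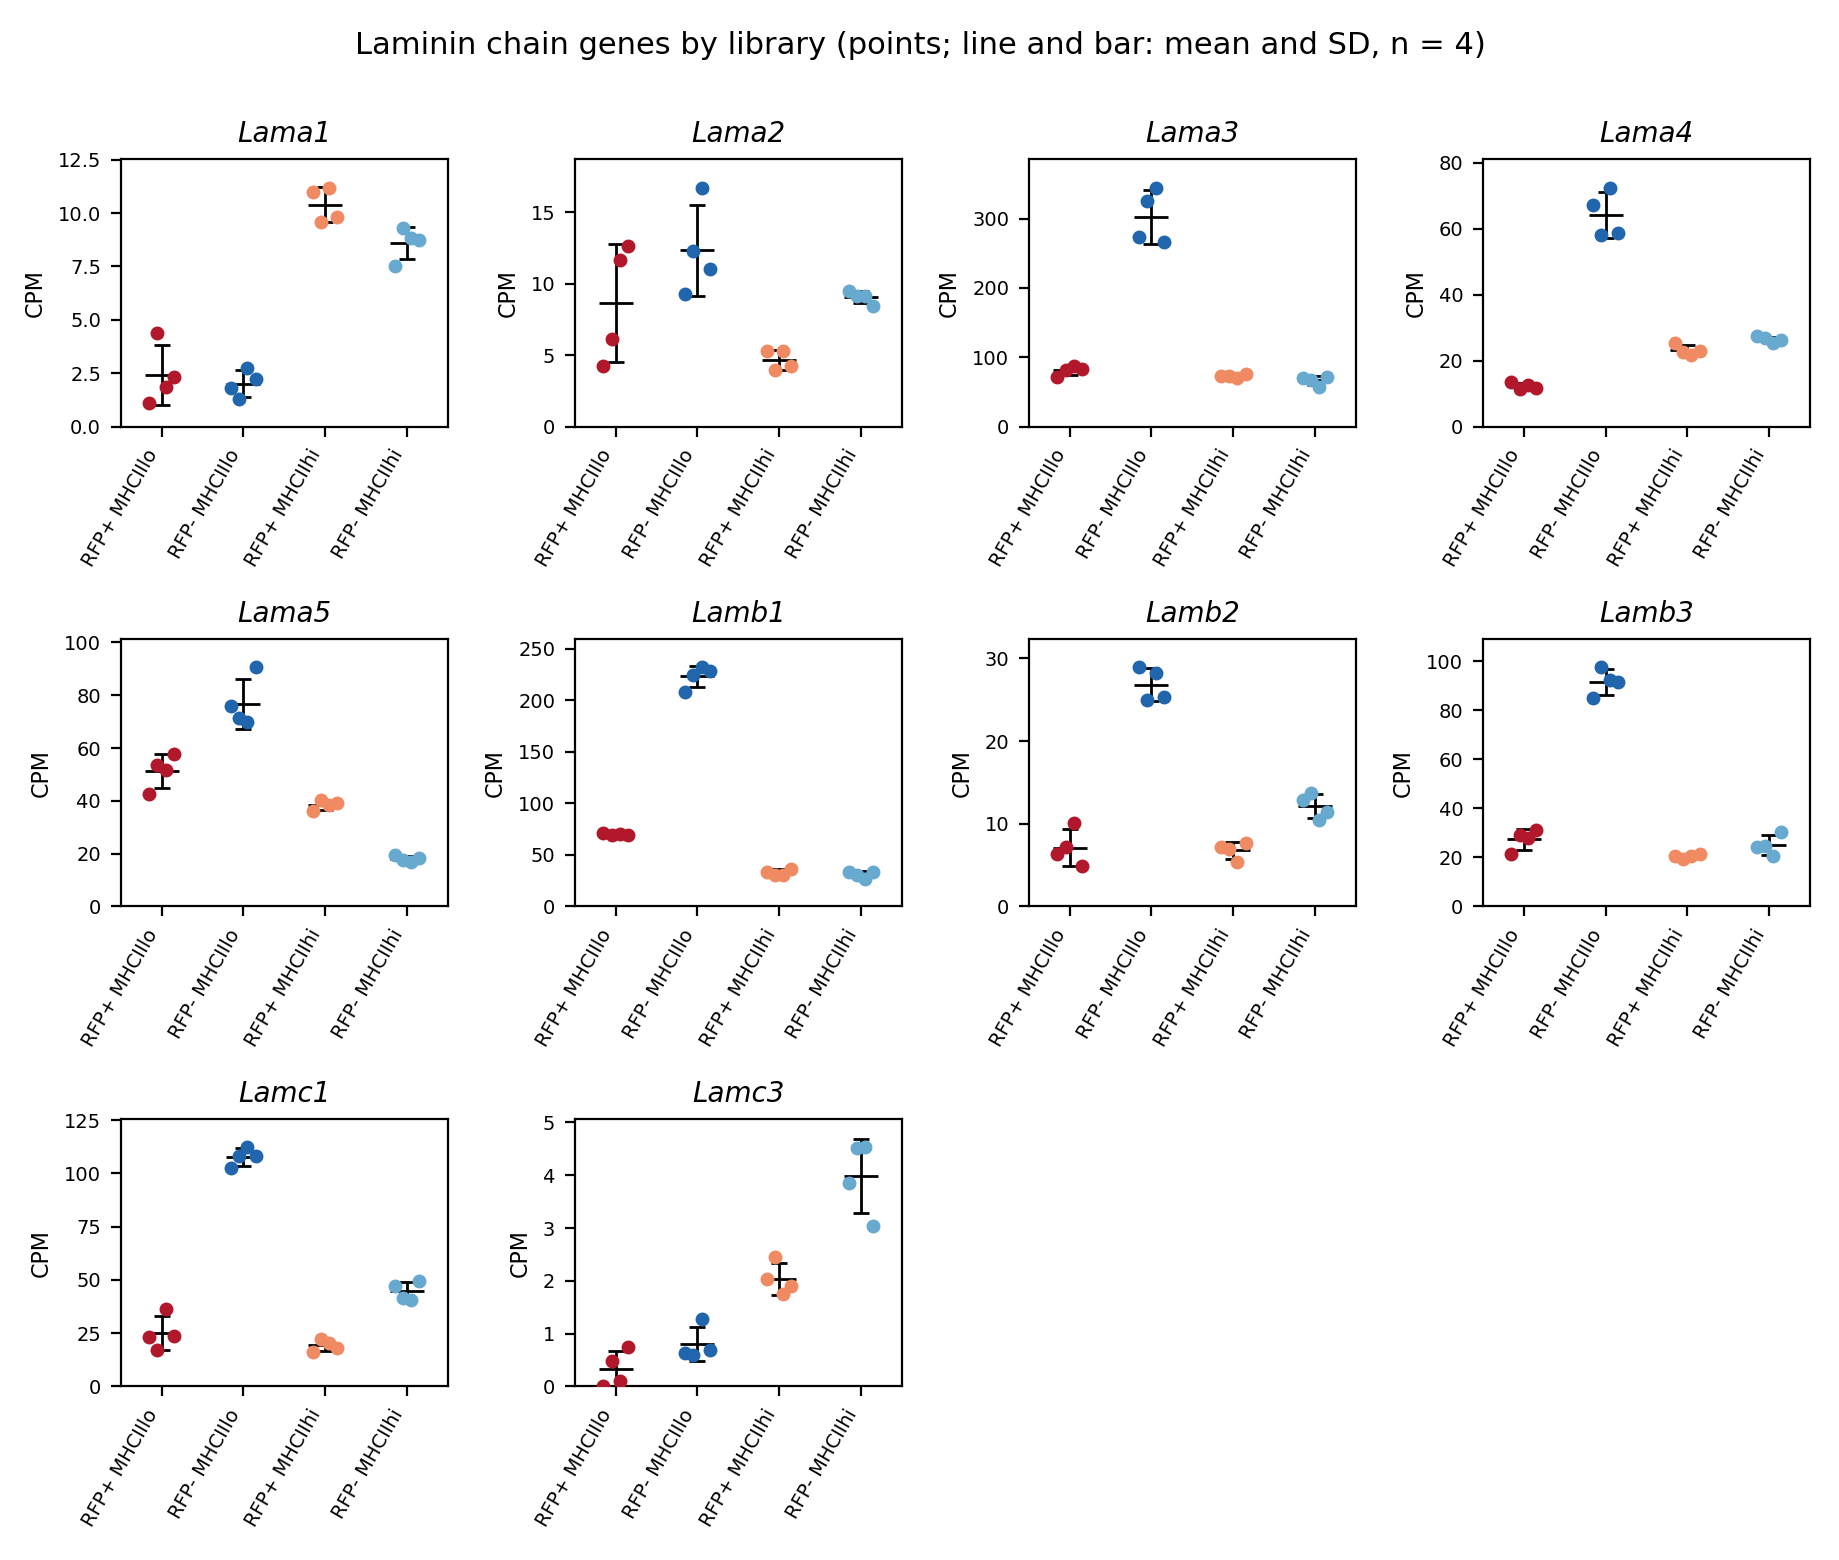
Levels of laminin chain genes in CPM, 1 panel a gene on linear axes from 0. Points are libraries, with the mean and SD of 4 for each group. In the panels of Lama3, Lama4, Lama5, Lamb1, Lamb2, Lamb3 and Lamc1 the 4 RFP- MHCIIlo libraries lie above the other 12, for example 209 to 232 CPM of Lamb1, while Lama1 and Lamc3 are higher in the MHCIIhi groups.

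Lama3 and Lamb3, known from the laminins of stratified epithelia, fell together with the label at low MHC class II. Lama3, an alpha chain, was at 71.9, 81.7, 87.1 and 83.7 CPM for RFP+ MHCIIlo, compared with 273, 326, 345 and 266 CPM for RFP- MHCIIlo libraries. The groups did not overlap, and Lama3 fell about 3.73-fold in RFP+ MHCIIlo cells (log2 difference -1.90, SE 0.09, edgeR adjusted p = 6.9e-14). Lamb3, a beta chain, was at 21.3, 29.0, 28.0 and 31.3 CPM for RFP+ MHCIIlo, compared with 84.8, 97.4, 92.3 and 91.6 CPM for RFP- MHCIIlo libraries (log2 difference -1.74, SE 0.11, edgeR adjusted p = 5.0e-12). For both, all 4 labelled libraries were below all 4 unlabelled ones. In the MHCIIhi gate the same chains differed by less with the label: Lama3 averaged 73.1 ± 2.56 CPM for RFP+ and 66.6 ± 6.26 CPM for RFP- MHCIIhi cells (log2 difference 0.13, SE 0.09, edgeR adjusted p = 0.25). Lamb3 was lower in RFP+ MHCIIhi (log2 difference -0.29, SE 0.11, edgeR adjusted p = 0.037). The call of Lamb3 was lost without RFP+ MHCIIhi replicates 1, 2 or 3 or RFP- MHCIIhi replicates 1, 2 or 4 (adjusted p = 0.050 to 0.18).

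The chains of the Lama5 trimer fell less evenly. Lamb1, a beta chain of many trimers, stood at 71.0, 69.2, 70.0 and 69.5 CPM for RFP+ MHCIIlo, compared with 209, 224, 232 and 229 CPM for RFP- MHCIIlo libraries, a fall of 1.68 on the log2 scale (SE 0.08, edgeR adjusted p = 5.8e-14). Within a group its libraries hardly differed, and no labelled library came near an unlabelled one. Lamc1, the gamma chain that most trimers use, was at 23.3, 17.3, 36.1 and 23.5 CPM for RFP+ MHCIIlo, compared with 102, 108, 112 and 108 CPM for RFP- MHCIIlo libraries (log2 difference -2.10, SE 0.14, edgeR adjusted p = 1.7e-11). Lama5 was at 42.6, 53.4, 51.6 and 57.9 CPM for RFP+ MHCIIlo, compared with 75.8, 71.2, 69.9 and 90.5 CPM for RFP- MHCIIlo libraries (log2 difference -0.58, SE 0.09, edgeR adjusted p = 1.8e-05), which is the smallest of the laminin falls. In the MHCIIhi gate Lama5 moved the other way, with 36.0, 40.2, 38.3 and 39.1 CPM for RFP+ MHCIIhi, compared with 19.3, 17.6, 16.7 and 18.3 CPM for RFP- MHCIIhi libraries (log2 difference 1.09, SE 0.10, edgeR adjusted p = 3.3e-09). All 4 labelled MHCIIhi libraries were above all 4 unlabelled ones, and the label effect on Lama5 differed between the gates by -1.67 (SE 0.14, edgeR adjusted p = 2.1e-09). Lamc1 fell in both gates, with 16.1 to 22.5 CPM for RFP+ and 40.4 to 49.6 CPM for RFP- MHCIIhi libraries (log2 difference -1.21, SE 0.14, edgeR adjusted p = 1.7e-07).

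Lama4, the alpha chain of vessel and mesenchymal basement membranes, had the largest fall among the laminins, at 13.4, 11.3, 12.5 and 11.7 CPM for RFP+ MHCIIlo, compared with 67.1, 58.1, 72.5 and 58.7 CPM for RFP- MHCIIlo libraries (log2 difference -2.39, SE 0.10, edgeR adjusted p = 3.8e-15). Lamb2, a beta chain that can replace Lamb1, was at 6.37, 7.19, 10.1 and 4.89 CPM for RFP+ MHCIIlo, compared with 28.9, 24.9, 28.2 and 25.3 CPM for RFP- MHCIIlo libraries (log2 difference -1.92, SE 0.17, edgeR adjusted p = 1.5e-09). For both, the labelled and unlabelled libraries did not overlap. Lama1, Lama2 and Lamc3 did not pass the test in this comparison. Lama2, the alpha chain of muscle and nerve basement membranes, was at 4.21, 6.09, 11.6 and 12.6 CPM for RFP+ MHCIIlo, compared with 9.25, 12.3, 16.7 and 11.01 CPM for RFP- MHCIIlo libraries (log2 difference -0.50, SE 0.24, edgeR adjusted p = 0.089), and its groups overlapped. Lama1, an alpha chain known from embryonic basement membranes, was at 1.08 to 4.39 CPM for RFP+ and 1.27 to 2.73 CPM for RFP- MHCIIlo libraries (log2 difference 0.23, SE 0.30, edgeR adjusted p = 0.55). Lamc3 had 14 reads in the 4 RFP+ MHCIIlo libraries and 36 in the 4 RFP- MHCIIlo libraries (log2 difference -1.17, SE 0.54, edgeR adjusted p = 0.074).

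Mesenchymal markers moved with the laminins: of 10, 7 were lower and none higher in RFP+ MHCIIlo against RFP- MHCIIlo (median -1.74), while of 9 endothelial markers 7 were lower and 1 higher. Of 6 smooth muscle markers 5 were lower and none higher, and of 4 mesothelial markers 3 were lower and none higher. Of all tested genes 22.7% were lower in this comparison. Summed, the mesenchymal markers were at 86.2 to 229 CPM for RFP+ and 592 to 1204 CPM for RFP- MHCIIlo libraries. In RFP- MHCIIlo replicates 1 to 4 the sum was 804, 592, 1204 and 737 CPM, a 2.03-fold span, and the replicates of Lama4 had the same order over a 1.25-fold span. Lamb1 spanned 1.11-fold, Lamc1 1.10-fold, Lamb3 1.15-fold and Lama3 1.29-fold, and among the integrins Itga8 spanned 2.57-fold. The replicates of these genes did not have the order of the sum, and Itga8 was lowest (6.82 CPM) in replicate 3, where the sum was highest. The part of other cell types in the laminin differences was not tested further.

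Among unlabelled cells, which compares the MHC class II gates without the lineage label, 8 of 11 laminins were higher and 2 lower at low MHC class II. Lamb1 was at 209, 224, 232 and 229 CPM for RFP- MHCIIlo, compared with 33.9, 30.2, 26.9 and 33.8 CPM for RFP- MHCIIhi libraries (log2 difference 2.84, SE 0.08, edgeR adjusted p = 1.5e-17), the largest rise among the members. Lama3 was at 266 to 345 CPM for RFP- MHCIIlo and 57.6 to 71.8 CPM for RFP- MHCIIhi libraries (log2 difference 2.18, SE 0.09, edgeR adjusted p = 2.5e-15), and Lama5 at 69.9 to 90.5 and 16.7 to 19.3 CPM in these groups (log2 difference 2.09, SE 0.10, edgeR adjusted p = 1.2e-14). Lamb3 rose by 1.87, Lama4 by 1.28, Lamc1 by 1.27 and Lamb2 by 1.14 on the log2 scale. None of these genes had overlapping libraries in the 2 groups. Lama1 and Lamc3 fell: Lama1 was at 1.81, 1.27, 2.73 and 2.24 CPM for RFP- MHCIIlo, compared with 7.51, 9.29, 8.83 and 8.73 CPM for RFP- MHCIIhi libraries (log2 difference -2.08, SE 0.26, edgeR adjusted p = 1.6e-07), and Lamc3 at 0.594 to 1.28 CPM for RFP- MHCIIlo and 3.04 to 4.53 CPM for RFP- MHCIIhi libraries (log2 difference -2.29, SE 0.37, edgeR adjusted p = 8.8e-06). Lama2 did not pass the test (log2 difference 0.45, SE 0.23, edgeR adjusted p = 0.089). Of 10 mesenchymal markers, 7 were higher and 2 lower in the same comparison (90% called, all genes 69.1%).

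Among labelled cells the gate separated the laminins less. Lamb1 was at 71.0, 69.2, 70.0 and 69.5 CPM for RFP+ MHCIIlo, compared with 33.7, 31.0, 30.9 and 36.8 CPM for RFP+ MHCIIhi libraries (log2 difference 1.08, SE 0.08, edgeR adjusted p = 1.8e-10), and Lama2, Lamb3, Lama5 and Lamc1 were also higher in RFP+ MHCIIlo, by 0.90, 0.42, 0.42 and 0.38. Lamc1 was no longer called without RFP+ MHCIIlo replicate 3 or RFP+ MHCIIhi replicates 1 or 4 (adjusted p = 0.082 to 0.38), and its difference was 0.13 without RFP+ MHCIIlo replicate 3. Lama2 was at 4.21, 6.09, 11.6 and 12.6 CPM for RFP+ MHCIIlo, compared with 5.30, 3.97, 5.27 and 4.21 CPM for RFP+ MHCIIhi libraries (log2 difference 0.90, SE 0.25, edgeR adjusted p = 0.0041), with 1 labelled MHCIIlo library inside the MHCIIhi range. In RFP+ MHCIIlo replicates 1 to 4, where Lama2 had its lowest value in replicate 1 and its highest in replicate 4, the summed mesenchymal markers were at 86.2, 113, 179 and 229 CPM, in the same order as Lama2, and at 178 to 206 CPM in RFP+ MHCIIhi. In RFP- MHCIIlo replicates 1 to 4, Lama2 (9.25, 12.3, 16.7 and 11.01 CPM) did not have the order of the sum (804, 592, 1204 and 737 CPM). The part of these markers in the Lama2 difference was not tested. Lama4 fell, with 13.4, 11.3, 12.5 and 11.7 CPM for RFP+ MHCIIlo, compared with 25.5, 22.6, 21.6 and 22.9 CPM for RFP+ MHCIIhi libraries (log2 difference -0.92, SE 0.10, edgeR adjusted p = 3.7e-08). Lama1 fell the most among members over 5 CPM, at 1.08, 4.39, 1.87 and 2.32 CPM for RFP+ MHCIIlo, compared with 10.99, 9.57, 11.2 and 9.82 CPM for RFP+ MHCIIhi libraries (log2 difference -2.13, SE 0.25, edgeR adjusted p = 1.9e-07). For Lamc3, at 0 to 0.746 CPM for RFP+ MHCIIlo and 1.76 to 2.45 CPM for RFP+ MHCIIhi libraries, the difference was -2.49 (SE 0.46, edgeR adjusted p = 7.8e-05), and -3.39 without RFP+ MHCIIlo replicate 4. Lama3 and Lamb2 differed by 0.15 (SE 0.09) and 0.06 (SE 0.18) and did not pass the test.

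Among the remaining laminins, compared by label at high MHC class II, Lama2 was at 5.30, 3.97, 5.27 and 4.21 CPM for RFP+ MHCIIhi, compared with 9.46, 9.16, 9.13 and 8.44 CPM for RFP- MHCIIhi libraries (log2 difference -0.95, SE 0.24, edgeR adjusted p = 0.0026), without overlap. Lamb2 was at 7.17, 7.00, 5.32 and 7.72 CPM for RFP+ MHCIIhi, compared with 12.9, 13.7, 10.5 and 11.4 CPM for RFP- MHCIIhi libraries (log2 difference -0.84, SE 0.16, edgeR adjusted p = 1.7e-04), also without overlap. Lamc3 fell by 0.96 (SE 0.32, edgeR adjusted p = 0.015), and leaving out RFP+ MHCIIhi replicate 3 or RFP- MHCIIhi replicate 2 brought its adjusted p to 0.054 and 0.053. Lamb1 (0.08, SE 0.08), Lama4 (-0.19, SE 0.09) and Lama1 (0.28, SE 0.21) did not pass the test.

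As shares of their chain class per kb, Lama3 made up 54.6 ± 1.68% of the alpha chain level in RFP+ MHCIIlo and 68.2 ± 3.48% in RFP- MHCIIlo cells (SD, n = 4 each), against 50.5 ± 0.959% in RFP+ and 54.2 ± 2.02% in RFP- MHCIIhi cells. The share of Lama5 was 32.5 ± 1.52% in RFP+ MHCIIlo and 16.6 ± 3.16% in RFP- MHCIIlo cells, against 25.1 ± 1.24% in RFP+ and 13.9 ± 0.501% in RFP- MHCIIhi cells. Labelled cells of either gate thus had the larger Lama5 share. The ratio of Lama3 to Lama5 per kb was 1.68 ± 0.128 in RFP+ MHCIIlo and 4.26 ± 0.965 in RFP- MHCIIlo cells, and 2.02 ± 0.107 in RFP+ and 3.92 ± 0.238 in RFP- MHCIIhi cells.

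**Figure D2:**
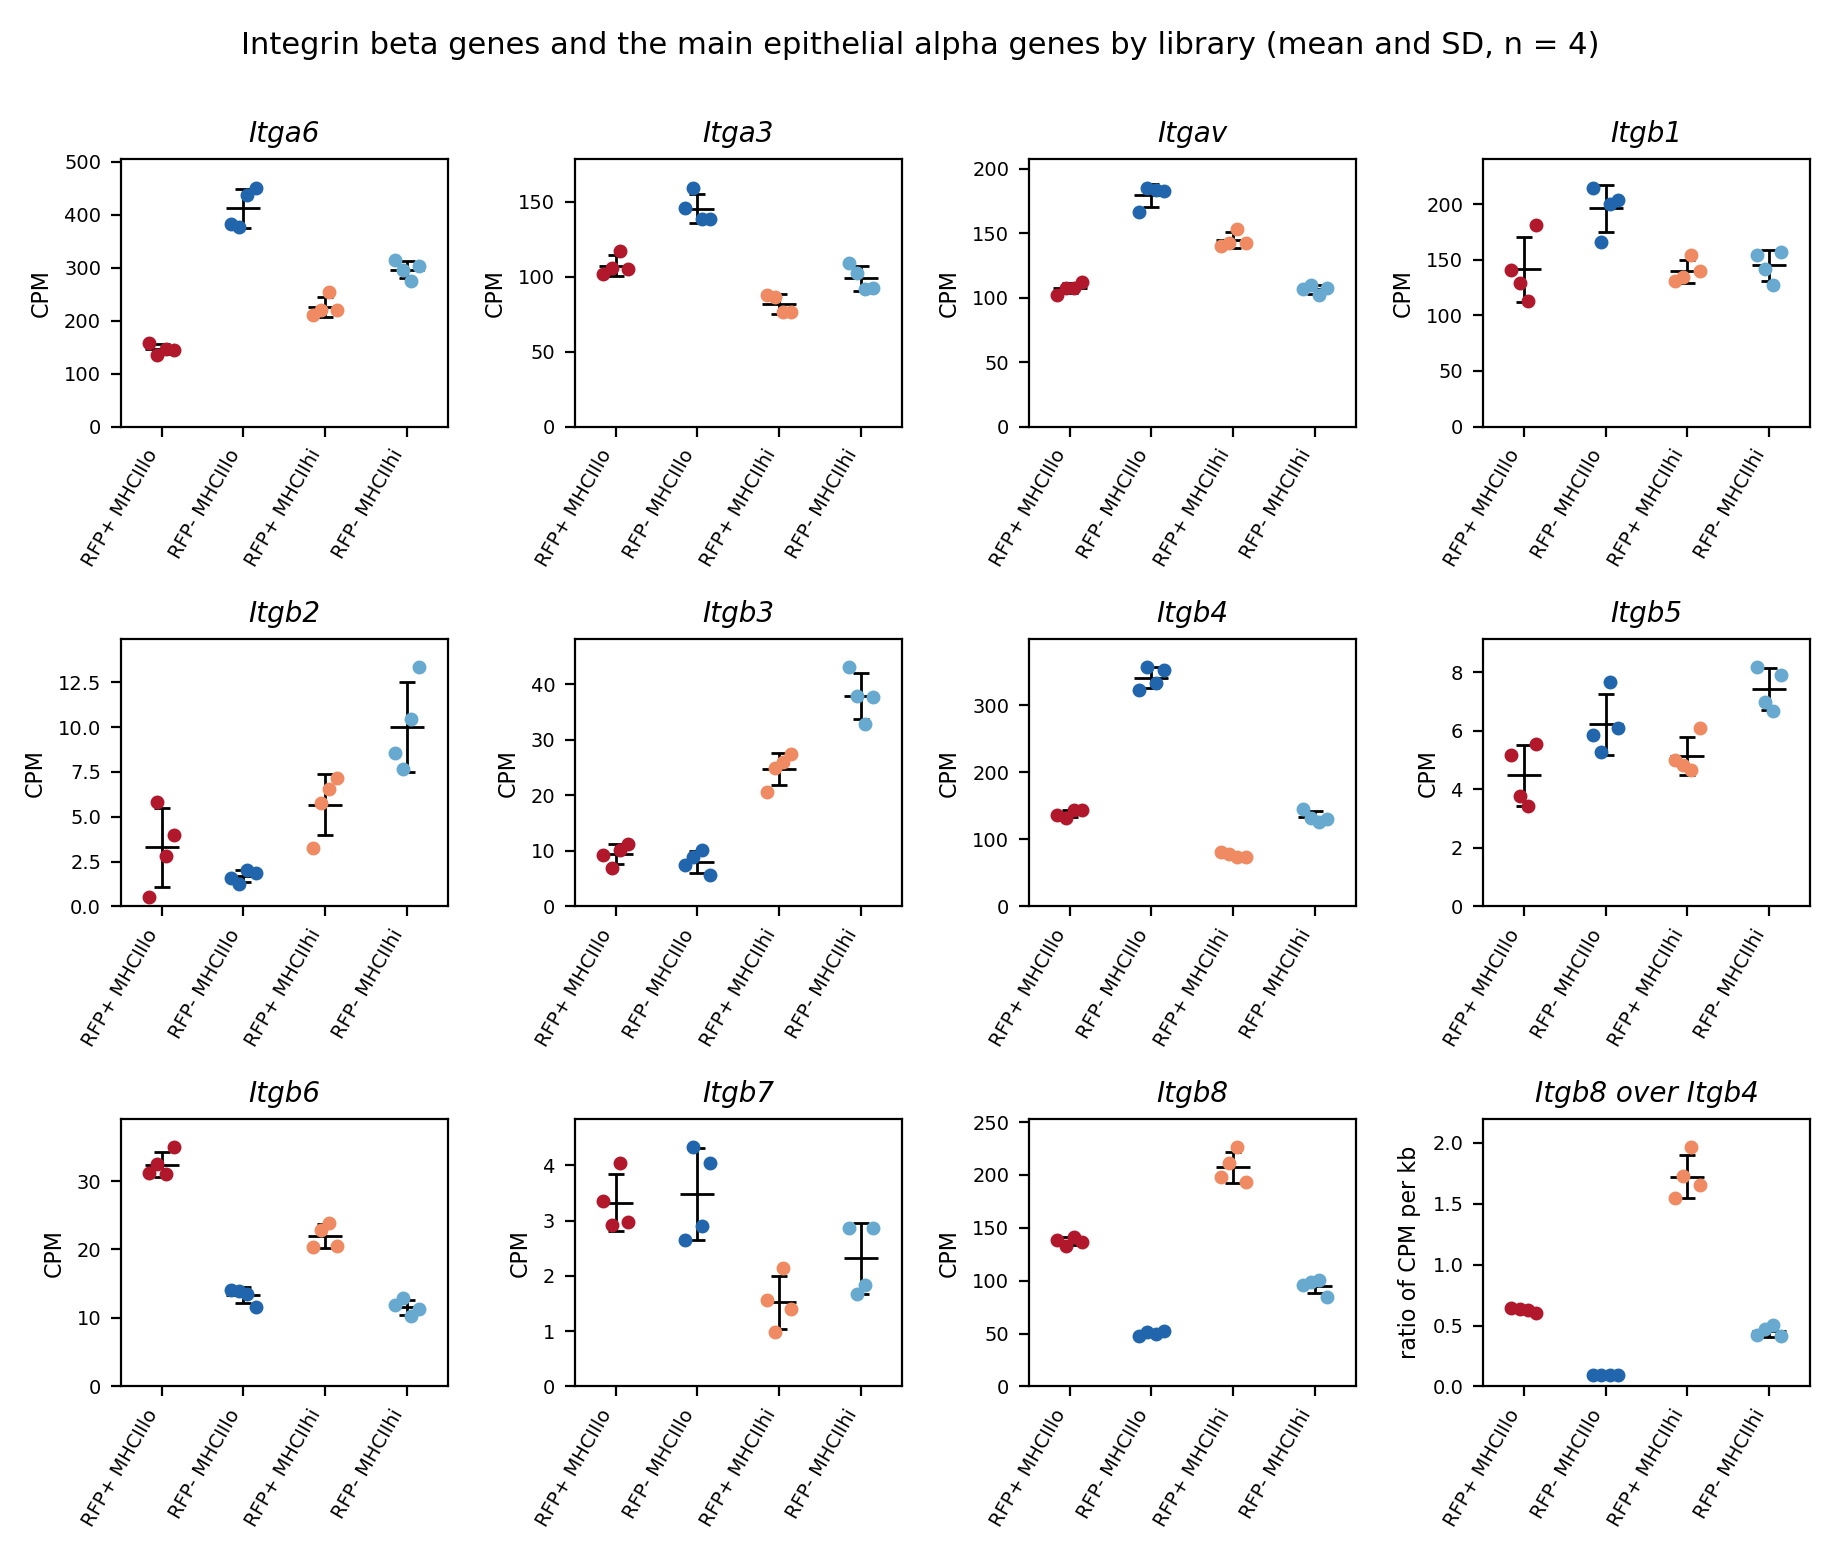
Levels of the 8 integrin beta genes and of Itga6, Itga3 and Itgav in CPM, with the ratio of Itgb8 to Itgb4 (CPM per kb) in the last panel. Points are libraries, with the mean and SD of 4 for each group, on linear axes from 0. Itga6 and Itgb4 peak in RFP- MHCIIlo and Itgb8 and Itgb6 are higher in each RFP+ group than in the RFP- group of its gate, so that the ratio of Itgb8 to Itgb4 is 0.628 ± 0.0182 in RFP+ MHCIIlo and 0.0932 ± 0.00150 in RFP- MHCIIlo. At high MHC class II it is 1.72 ± 0.177 for RFP+ and 0.452 ± 0.0434 for RFP- cells.

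Of the receptors, the hemidesmosome pair fell with its ligand. Itga6, the laminin-binding alpha subunit, was at 159, 135, 147 and 145 CPM for RFP+ MHCIIlo and 383, 377, 437 and 452 CPM for RFP- MHCIIlo libraries. Itga6 in MHCIIhi cells was at 211, 220.4, 254 and 221 CPM for RFP+ and 314, 295, 275 and 303 CPM for RFP- libraries. It fell with the label at low MHC class II (log2 difference -1.49, SE 0.08, edgeR adjusted p = 7.2e-13) and, by less, at high MHC class II (log2 difference -0.39, SE 0.08, edgeR adjusted p = 4.3e-04). Its 4 groups formed the order RFP- MHCIIlo, RFP- MHCIIhi, RFP+ MHCIIhi and RFP+ MHCIIlo, with no overlap between neighbours. Itgb4, its hemidesmosomal partner, was at 136, 132, 143 and 144 CPM for RFP+ MHCIIlo and 323, 356, 334 and 352 CPM for RFP- MHCIIlo libraries. Itgb4 in MHCIIhi cells was at 81.4, 77.8, 73.1 and 74.0 CPM for RFP+ and 145, 132, 127 and 130.0 CPM for RFP- libraries. The label difference was -1.30 at low (SE 0.07, edgeR adjusted p = 4.5e-13) and -0.80 at high MHC class II (SE 0.07, edgeR adjusted p = 2.3e-09). Itgb4 was higher in the low gate in labelled cells (0.86) and in unlabelled cells (1.35), whereas Itga6 was lower in RFP+ MHCIIlo than in RFP+ MHCIIhi (-0.63) and higher in RFP- MHCIIlo than in RFP- MHCIIhi (0.47), each with an edgeR adjusted p of at most 2.2e-05. The ratio of Itgb4 to Itga6 per kb was 1.23 ± 0.0821 in RFP+ MHCIIlo, 1.07 ± 0.106 in RFP- MHCIIlo, 0.438 ± 0.0525 in RFP+ MHCIIhi and 0.580 ± 0.0198 in RFP- MHCIIhi cells.

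Itga3, which pairs with Itgb1 as a laminin receptor of basal epithelium, was at 102, 106, 117 and 105 CPM for RFP+ MHCIIlo and 146, 159.6, 138 and 139 CPM for RFP- MHCIIlo libraries. Itga3 in MHCIIhi cells was at 88.2, 86.4, 76.3 and 76.3 CPM for RFP+ and 109, 102, 92.1 and 92.3 CPM for RFP- libraries. It fell with the label in both gates (-0.44, SE 0.08, at low and -0.28, SE 0.08, at high MHC class II, edgeR adjusted p = 9.1e-05 and 0.0076). The 2 differences did not differ beyond their error (log2 difference -0.16, SE 0.11, edgeR adjusted p = 0.30). It was higher at low MHC class II among labelled (0.39) and unlabelled cells (0.56). Itgb1, the common partner of many alpha subunits, was at 141, 129, 113 and 182 CPM for RFP+ MHCIIlo and 215, 166, 199.9 and 204 CPM for RFP- MHCIIlo libraries. Itgb1 in MHCIIhi cells was at 131, 134, 154 and 139 CPM for RFP+ and 154, 141, 127 and 157 CPM for RFP- libraries. Its label difference was -0.47 at low MHC class II (SE 0.11, edgeR adjusted p = 0.0013), and the labelled and unlabelled libraries overlapped. Itgb1 was also higher in RFP- MHCIIlo than in RFP- MHCIIhi (log2 difference 0.44, SE 0.11, edgeR adjusted p = 0.0016), without overlap. The differences of 0.02 (SE 0.11) between RFP+ MHCIIlo and RFP+ MHCIIhi and -0.05 (SE 0.11) between RFP+ MHCIIhi and RFP- MHCIIhi did not pass the test. Itgb1 made up 44.9 ± 4.60%, 44.4 ± 3.61%, 45.6 ± 1.07% and 45.8 ± 1.72% of the integrin beta level per kb in RFP+ MHCIIlo, RFP- MHCIIlo, RFP+ MHCIIhi and RFP- MHCIIhi cells. Itga7, a laminin receptor of muscle, had 12 and 25 reads in all RFP+ and RFP- MHCIIlo libraries, against 2.74 to 5.61 CPM for RFP+ and 5.33 to 6.29 CPM for RFP- MHCIIhi libraries (log2 differences of -3.73 among labelled and -3.34 among unlabelled cells, edgeR adjusted p = 2.4e-08 and 4.5e-09). Its label differences did not pass the test in either gate.

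The 2 integrin beta genes of the TGF-beta-activating pairs rose with the label in both gates. Itgb8 was at 139, 132, 141 and 137 CPM for RFP+ MHCIIlo and 47.6, 51.2, 49.2 and 52.6 CPM for RFP- MHCIIlo libraries. Itgb8 in MHCIIhi cells was at 198, 212, 226 and 193 CPM for RFP+ and 95.9, 98.6, 101 and 84.9 CPM for RFP- libraries. All 4 groups were separate, in the order RFP+ MHCIIhi, RFP+ MHCIIlo, RFP- MHCIIhi and RFP- MHCIIlo. The label difference was 1.45 at low (SE 0.08, edgeR adjusted p = 2.2e-13) and 1.13 at high MHC class II (SE 0.07, edgeR adjusted p = 1.5e-11). Itgb6 was at 31.2, 32.5, 31.0 and 34.9 CPM for RFP+ MHCIIlo and 14.1, 14.0, 13.5 and 11.6 CPM for RFP- MHCIIlo libraries. Itgb6 in MHCIIhi cells was at 20.3, 22.9, 23.9 and 20.6 CPM for RFP+ and 11.9, 12.8, 10.3 and 11.3 CPM for RFP- libraries. Each labelled library was above each unlabelled library of either gate (log2 difference 1.29, SE 0.10, edgeR adjusted p = 4.0e-10, at low and log2 difference 0.92, SE 0.10, edgeR adjusted p = 8.5e-08, at high MHC class II). Within labelled cells Itgb6 was higher in MHCIIlo (log2 difference 0.56, SE 0.10, edgeR adjusted p = 4.1e-05) and Itgb8 lower (log2 difference -0.59, SE 0.07, edgeR adjusted p = 3.4e-07). Among unlabelled cells Itgb6 did not pass the test (log2 difference 0.20, SE 0.11, edgeR adjusted p = 0.11) while Itgb8 was lower in MHCIIlo (log2 difference -0.92, SE 0.08, edgeR adjusted p = 2.1e-10).

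Their alpha partner Itgav was at 102, 108, 107 and 112 CPM for RFP+ MHCIIlo and 166, 185, 183 and 183 CPM for RFP- MHCIIlo libraries. Itgav in MHCIIhi cells was at 139.9, 142, 153 and 143 CPM for RFP+ and 106, 109.8, 102 and 107 CPM for RFP- libraries. It went in opposite directions with the label, falling at low (log2 difference -0.74, SE 0.07, edgeR adjusted p = 2.9e-09) and rising at high MHC class II (log2 difference 0.44, SE 0.07, edgeR adjusted p = 8.2e-06). The difference between the gates was -1.18 (SE 0.10, edgeR adjusted p = 1.6e-09). Neither pair of groups overlapped. The ratio of Itgav to the sum of Itgb6 and Itgb8 per kb was 0.587 ± 0.0202 in RFP+ MHCIIlo, 2.61 ± 0.105 in RFP- MHCIIlo, 0.617 ± 0.0272 in RFP+ MHCIIhi and 0.972 ± 0.0762 in RFP- MHCIIhi cells (SD, n = 4 each). Itgb3 and Itgb5 are further partners of Itgav. Itgb3, the vitronectin receptor subunit, was at 9.18, 6.95, 10.2 and 11.2 CPM for RFP+ MHCIIlo and 7.44, 8.82, 10.2 and 5.68 CPM for RFP- MHCIIlo libraries. Itgb3 in MHCIIhi cells was at 20.7, 24.8, 26.0 and 27.4 CPM for RFP+ and 43.0, 37.9, 32.8 and 37.7 CPM for RFP- libraries. Both MHCIIlo groups lay below both MHCIIhi groups (log2 difference -1.38, SE 0.15, edgeR adjusted p = 6.1e-08, among labelled and log2 difference -2.23, SE 0.15, edgeR adjusted p = 7.5e-12, among unlabelled cells). With the label Itgb3 fell at high MHC class II (log2 difference -0.62, SE 0.14, edgeR adjusted p = 6.2e-04), while at low MHC class II the difference was 0.23 (adjusted p = 0.27). Itgb5 was at 3.43 to 5.56 CPM for RFP+ MHCIIlo, 5.26 to 7.68 CPM for RFP- MHCIIlo, 4.66 to 6.10 CPM for RFP+ MHCIIhi and 6.68 to 8.16 CPM for RFP- MHCIIhi libraries, and was lower in labelled cells of both gates (-0.46 and -0.54, edgeR adjusted p = 0.046 and 0.014). Leaving out RFP+ MHCIIlo replicates 2 or 3 or RFP- MHCIIlo replicates 1, 3 or 4 ended the call of Itgb5 at low MHC class II (adjusted p = 0.054 to 0.17).

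In shares of the integrin beta level per kb, Itgb4 took 26.0 ± 2.37% in RFP+ MHCIIlo and 45.1 ± 3.08% in RFP- MHCIIlo cells, and 14.6 ± 1.42% in RFP+ and 24.6 ± 1.05% in RFP- MHCIIhi cells. Itgb8 took 16.4 ± 1.70% in RFP+ MHCIIlo and 4.20 ± 0.238% in RFP- MHCIIlo cells, and 25.0 ± 1.01% in RFP+ and 11.2 ± 1.40% in RFP- MHCIIhi cells. The ratio of Itgb8 to Itgb4 per kb was 0.647, 0.635, 0.625 and 0.604 in the RFP+ MHCIIlo libraries, against 0.0934, 0.0910, 0.0936 and 0.0946 in the RFP- MHCIIlo libraries. It was 1.54, 1.73, 1.96 and 1.66 in the RFP+ MHCIIhi libraries, against 0.418, 0.472, 0.504 and 0.415 in the RFP- MHCIIhi libraries. A labelled group had the higher ratio in each gate, with no overlap.

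**Figure D3:**
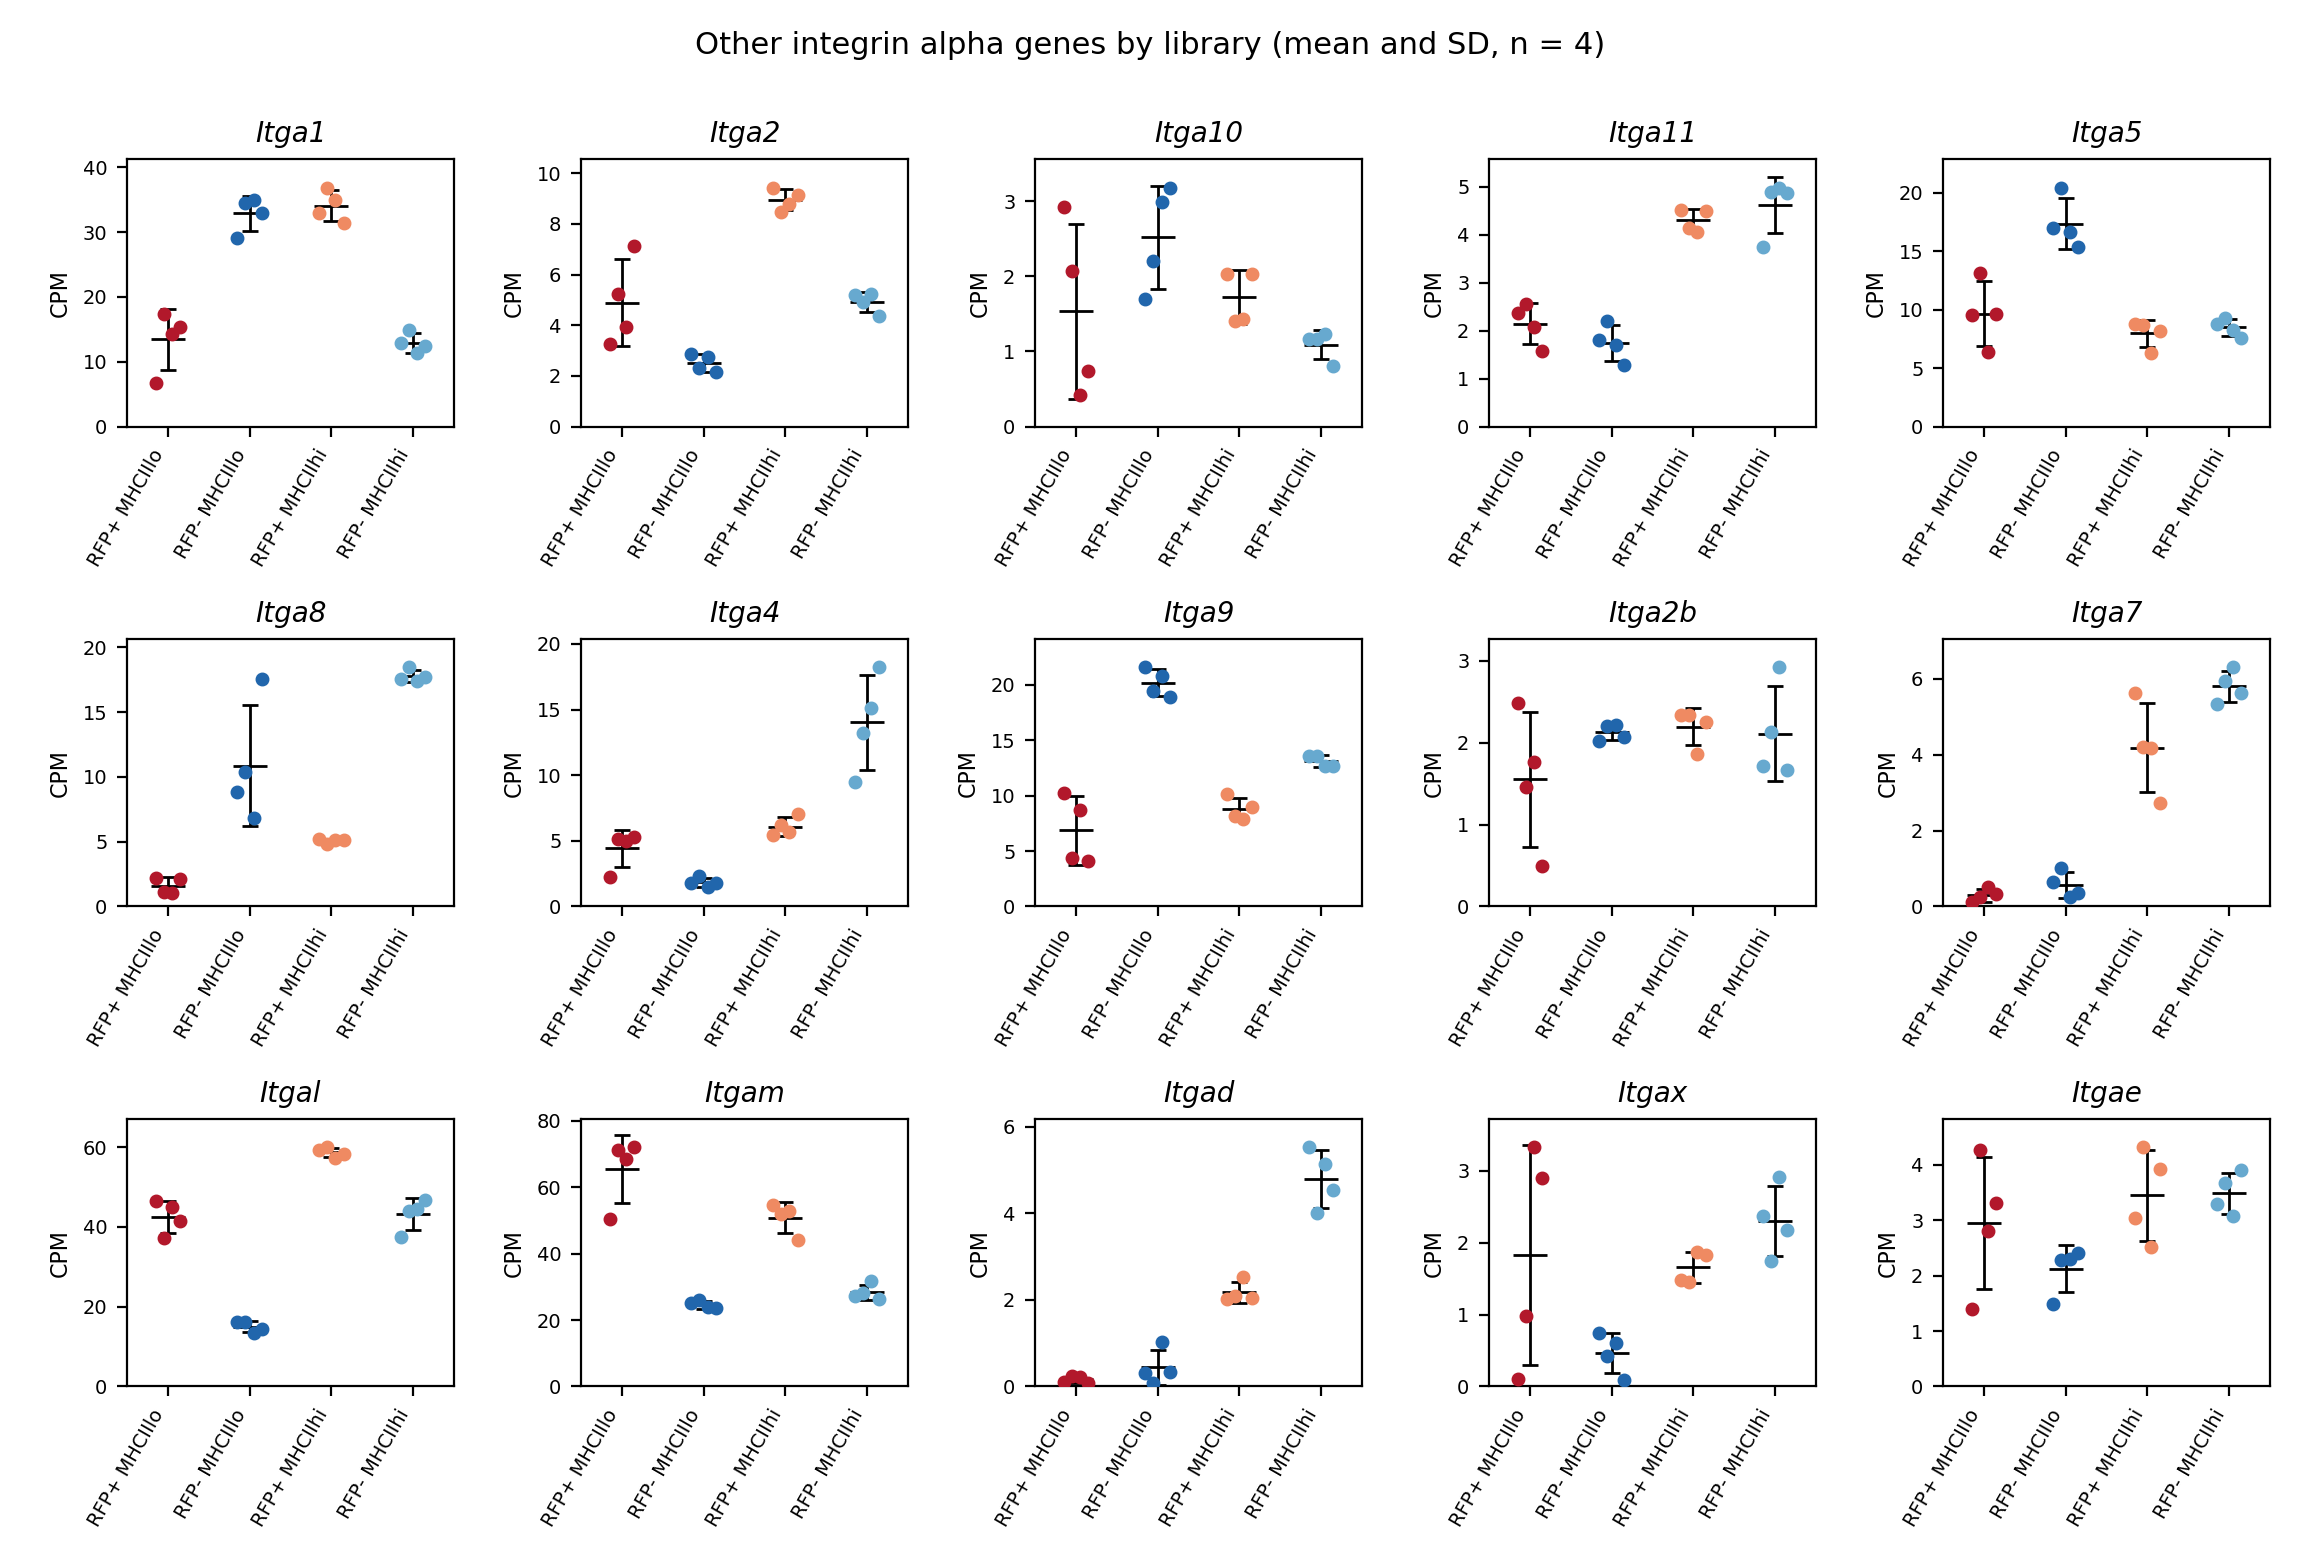
Levels of the other 15 integrin alpha genes in CPM, 1 panel a gene on linear axes from 0. Points are libraries, with the mean and SD of 4 for each group. Itga1 is high in RFP- MHCIIlo (29.1 to 34.9 CPM) and RFP+ MHCIIhi (31.4 to 36.9 CPM), and Itgal and Itgam are lowest in RFP- MHCIIlo.

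The collagen-binding integrins had patterns of their own. Itga1, a type IV collagen receptor subunit, was at 6.70, 17.3, 14.3 and 15.4 CPM for RFP+ MHCIIlo and 29.1, 34.5, 34.9 and 32.9 CPM for RFP- MHCIIlo libraries. Itga1 in MHCIIhi cells was at 33.0, 36.9, 35.0 and 31.4 CPM for RFP+ and 12.9, 14.9, 11.4 and 12.4 CPM for RFP- libraries. In labelled cells it fell at low and rose at high MHC class II (log2 difference -1.29, SE 0.17, edgeR adjusted p = 6.8e-07, and log2 difference 1.40, SE 0.16, edgeR adjusted p = 1.2e-07). The difference between the gates, -2.69 (SE 0.23, edgeR adjusted p = 4.1e-09), was the largest of any member. It fell in MHCIIlo against MHCIIhi among labelled cells (log2 difference -1.34, SE 0.16, edgeR adjusted p = 3.0e-07) and rose among unlabelled ones (log2 difference 1.35, SE 0.16, edgeR adjusted p = 9.6e-08). Itga2, a fibrillar collagen receptor subunit, was at 3.24, 5.24, 3.95 and 7.13 CPM for RFP+ MHCIIlo and 2.87, 2.29, 2.73 and 2.15 CPM for RFP- MHCIIlo libraries. Itga2 in MHCIIhi cells was at 9.43, 8.46, 8.78 and 9.12 CPM for RFP+ and 5.20, 4.90, 5.22 and 4.36 CPM for RFP- libraries. It rose with the label in both gates (log2 difference 0.98, SE 0.22, edgeR adjusted p = 7.0e-04, at low and log2 difference 0.86, SE 0.18, edgeR adjusted p = 4.8e-04, at high MHC class II), by amounts whose difference did not pass the test (0.12, SE 0.29), and was lower in MHCIIlo than in MHCIIhi cells in both label groups (-0.85 and -0.97). Itga11, at 1.58 to 2.56 CPM for RFP+ MHCIIlo, 1.29 to 2.21 CPM for RFP- MHCIIlo, 4.06 to 4.52 CPM for RFP+ MHCIIhi and 3.76 to 4.99 CPM for RFP- MHCIIhi libraries, was also lower in both MHCIIlo groups (-1.02 among labelled and -1.39 among unlabelled cells, edgeR adjusted p = 4.1e-04 and 5.9e-06), and its label differences did not pass the test. Itga10 was at 0.415 to 2.92 CPM for RFP+ MHCIIlo, 1.70 to 3.18 CPM for RFP- MHCIIlo, 1.40 to 2.03 CPM for RFP+ MHCIIhi and 0.804 to 1.23 CPM for RFP- MHCIIhi libraries and was higher in RFP- MHCIIlo than in RFP- MHCIIhi (log2 difference 1.22, SE 0.39, edgeR adjusted p = 0.0082). Of its exon bases, 33.5% are shared with an overlapping gene of the annotation on the same strand, Gm42957, which is not among the counted genes.

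Among the integrins that bind fibronectin and related proteins, Itga8, the nephronectin receptor subunit, had the largest fall of a member with the label at low MHC class II, at 2.16, 1.10, 1.04 and 2.16 CPM for RFP+ MHCIIlo, compared with 8.82, 10.4, 6.82 and 17.5 CPM for RFP- MHCIIlo libraries (log2 difference -2.72, SE 0.27, edgeR adjusted p = 1.1e-08). At high MHC class II it was at 5.22, 4.84, 5.10 and 5.12 CPM for RFP+ MHCIIhi, compared with 17.6, 18.5, 17.4 and 17.7 CPM for RFP- MHCIIhi libraries (log2 difference -1.81, SE 0.21, edgeR adjusted p = 1.8e-07). The groups did not overlap in either gate. It was lower in MHCIIlo than in MHCIIhi cells with the label (log2 difference -1.62, SE 0.28, edgeR adjusted p = 3.6e-05) and without it (log2 difference -0.70, SE 0.20, edgeR adjusted p = 0.0036), although RFP- MHCIIlo replicate 4 reached the RFP- MHCIIhi range. Itga9, a tenascin-C and VCAM-1 receptor subunit, fell with the label in both gates, with 10.3, 4.39, 8.73 and 4.06 CPM for RFP+ MHCIIlo, compared with 21.6, 19.4, 20.8 and 18.9 CPM for RFP- MHCIIlo libraries (log2 difference -1.56, SE 0.20, edgeR adjusted p = 5.2e-07), and 7.90 to 10.1 CPM for RFP+ and 12.7 to 13.6 CPM for RFP- MHCIIhi libraries (log2 difference -0.58, SE 0.19, edgeR adjusted p = 0.013). Itga5, the classical fibronectin receptor subunit, was at 9.51, 13.2, 6.34 and 9.62 CPM for RFP+ MHCIIlo, compared with 17.0, 20.4, 16.6 and 15.4 CPM for RFP- MHCIIlo libraries (log2 difference -0.85, SE 0.17, edgeR adjusted p = 2.0e-04) and at 6.26 to 8.81 CPM for RFP+ and 7.58 to 9.29 CPM for RFP- MHCIIhi libraries, where its difference did not pass the test (-0.10, SE 0.17). Both rose in MHCIIlo against MHCIIhi among unlabelled cells (Itga9 by 0.62, Itga5 by 1.03), and among labelled cells neither passed the test.

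Itga4, which binds VCAM-1 and MAdCAM-1 on leukocytes, was at 2.27, 5.12, 4.99 and 5.31 CPM for RFP+ MHCIIlo and 1.81, 2.29, 1.45 and 1.81 CPM for RFP- MHCIIlo libraries. Itga4 in MHCIIhi cells was at 5.46, 6.18, 5.71 and 7.02 CPM for RFP+ and 9.51, 13.2, 15.1 and 18.2 CPM for RFP- libraries. It rose with the label at low MHC class II (log2 difference 1.27, SE 0.27, edgeR adjusted p = 4.6e-04), where RFP+ replicate 1 lay inside the RFP- range. It fell at high MHC class II (log2 difference -1.20, SE 0.21, edgeR adjusted p = 4.0e-05), and was 2.92 lower on the log2 scale in RFP- MHCIIlo than in RFP- MHCIIhi cells (SE 0.25, edgeR adjusted p = 3.0e-10). Of 12 thymocyte markers, 11 were lower and none higher in RFP+ MHCIIhi against RFP- MHCIIhi (91.7% called, against 45% of all genes). In RFP+ MHCIIlo against RFP- MHCIIlo 5 were higher and none lower, where 28.9% of all genes were higher and 22.7% lower. The share called in either direction was 41.7%, against 51.6% of all genes. In the 4 RFP- MHCIIhi libraries the summed thymocyte markers were at 326, 372, 491 and 758 CPM while Itga4 was at 9.51, 13.2, 15.1 and 18.2 CPM, replicates 1 to 4 in each case. The part of thymocyte RNA in the Itga4 difference was not tested further. Its partner Itgb7 was at 2.93 to 4.05 CPM for RFP+ MHCIIlo, 2.66 to 4.33 CPM for RFP- MHCIIlo, 0.992 to 2.14 CPM for RFP+ MHCIIhi and 1.68 to 2.88 CPM for RFP- MHCIIhi libraries, and passed the test in the comparison of RFP+ MHCIIlo with RFP+ MHCIIhi (log2 difference 1.12, SE 0.28, edgeR adjusted p = 0.0018). Itgae, the E-cadherin receptor subunit of intraepithelial T cells, was at 1.40 to 4.27 CPM for RFP+ MHCIIlo, 1.49 to 2.41 CPM for RFP- MHCIIlo, 2.52 to 4.32 CPM for RFP+ MHCIIhi and 3.07 to 3.90 CPM for RFP- MHCIIhi libraries. Its difference between RFP- MHCIIlo and RFP- MHCIIhi was -0.70 (SE 0.27, edgeR adjusted p = 0.025). It was no longer called without RFP- MHCIIlo replicate 1 or RFP- MHCIIhi replicates 2 or 4 (adjusted p = 0.050 to 0.082).

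Alpha subunits of the leukocyte integrins were together at higher levels per kb than Itgb2, their only beta partner. Itgal, the alpha subunit of the ICAM-1 receptor LFA-1, was at 46.4, 37.3, 44.9 and 41.4 CPM for RFP+ MHCIIlo and 16.2, 16.04, 13.3 and 14.4 CPM for RFP- MHCIIlo libraries. Itgal in MHCIIhi cells was at 59.2, 59.9, 57.3 and 58.3 CPM for RFP+ and 37.5, 44.0, 44.6 and 46.8 CPM for RFP- libraries. It rose with the label in both gates (log2 difference 1.51, SE 0.10, edgeR adjusted p = 5.9e-12, at low and log2 difference 0.44, SE 0.09, edgeR adjusted p = 1.6e-04, at high MHC class II). It was lower at low than at high MHC class II among labelled (-0.47) and unlabelled cells (-1.53). Itgam, the alpha subunit of complement receptor Mac-1, was at 50.4, 71.3, 68.3 and 72.0 CPM for RFP+ MHCIIlo and 25.0, 26.1, 23.8 and 23.5 CPM for RFP- MHCIIlo libraries. Itgam in MHCIIhi cells was at 54.6, 51.9, 52.8 and 44.0 CPM for RFP+ and 27.1, 28.0, 31.6 and 26.4 CPM for RFP- libraries and rose with the label in both gates too (log2 difference 1.41, SE 0.11, edgeR adjusted p = 9.4e-11, and log2 difference 0.85, SE 0.10, edgeR adjusted p = 2.8e-07). The Itgam libraries of the label groups did not overlap in either gate. Of its exon bases, 68.7% are shared on the same strand with Gm49368, an overlapping gene that is not among the counted genes. Itgb2, the beta subunit that both need to reach the surface, was at 0.540, 5.85, 2.80 and 3.98 CPM for RFP+ MHCIIlo and 1.59, 1.27, 2.05 and 1.89 CPM for RFP- MHCIIlo libraries. Itgb2 in MHCIIhi cells was at 3.27, 5.77, 6.53 and 7.16 CPM for RFP+ and 8.58, 7.68, 10.4 and 13.3 CPM for RFP- libraries. Its label difference did not pass the test at low MHC class II (log2 difference 0.94, SE 0.41, edgeR adjusted p = 0.061) and was -0.81 at high MHC class II (SE 0.30, edgeR adjusted p = 0.034). That call was lost without RFP+ MHCIIhi replicates 1 or 2 or RFP- MHCIIhi replicates 3 or 4 (adjusted p = 0.063 to 0.12). Between RFP- MHCIIlo and RFP- MHCIIhi it fell (log2 difference -2.55, SE 0.36, edgeR adjusted p = 1.5e-06).

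The sum of Itgal, Itgam, Itgax and Itgad was 10.5 to 96.7 times the Itgb2 level per kb in RFP+ MHCIIlo, 10.6 to 18.6 times in RFP- MHCIIlo, 7.87 to 19.3 times in RFP+ MHCIIhi and 3.17 to 5.37 times in RFP- MHCIIhi libraries. The highest of these, in RFP+ MHCIIlo replicate 1, came with the lowest Itgb2 level of its group. All 5 pan-leukocyte markers were higher in RFP+ MHCIIlo than in RFP- MHCIIlo (median 1.04), where 28.9% of all genes were higher. Ptprc (CD45) was among them, at 33.8, 34.0, 45.3 and 32.3 CPM for RFP+ and 22.7, 23.5, 20.5 and 17.7 CPM for RFP- MHCIIlo libraries. At high MHC class II 1 of the 5 was higher, 2 lower and 2 not called in RFP+ against RFP- cells (median -0.29, all genes 23.8% higher and 21.2% lower). Their summed level was 946 to 1058 CPM for RFP+ and 773 to 907 CPM for RFP- MHCIIhi libraries, higher in RFP+ as Itgal and Itgam were, whereas Ptprc was at 20.4, 19.3, 21.3 and 26.7 CPM for RFP+ and 42.2, 47.8, 61.7 and 88.4 CPM for RFP- MHCIIhi libraries. For 12 myeloid and dendritic markers the sum was 143 to 227 CPM for RFP+ and 91.1 to 134 CPM for RFP- MHCIIlo libraries. At high MHC class II it was 661 to 703 CPM for RFP+ and 428 to 517 CPM for RFP- libraries. Of the 12, 5 were higher and none lower with the label at low, and 3 higher and 1 lower at high MHC class II. Of all genes 28.9% were higher and 22.7% lower at low, and 23.8% higher and 21.2% lower at high MHC class II. The shares called in either direction were 41.7% and 33.3%, against 51.6% and 45% of all genes. The part of leukocytes in these differences was not tested further. Itgax and Itgad, alpha subunits of dendritic cells and macrophages, were low. Itgax was at 0.108 to 3.32 CPM for RFP+ MHCIIlo, 0.0860 to 0.744 CPM for RFP- MHCIIlo, 1.46 to 1.87 CPM for RFP+ MHCIIhi and 1.74 to 2.92 CPM for RFP- MHCIIhi libraries (log2 difference 2.03, SE 0.59, edgeR adjusted p = 0.0058, with the label at low MHC class II), a call that limma-voom did not make (adjusted p = 0.10). It differed by -2.32 between RFP- MHCIIlo and RFP- MHCIIhi. Itgad had 6 and 20 reads in all RFP+ and RFP- MHCIIlo libraries. It was at 2.03 to 2.52 CPM for RFP+ and 4.00 to 5.52 CPM for RFP- MHCIIhi libraries, where it fell with the label (log2 difference -1.14, SE 0.28, edgeR adjusted p = 0.0018). Its gate difference was -3.75 among labelled and -3.40 among unlabelled cells, or -4.24 without RFP- MHCIIlo replicate 3. Itga2b, the platelet integrin subunit, was at 0.498 to 2.49 CPM for RFP+ MHCIIlo, 2.02 to 2.22 CPM for RFP- MHCIIlo, 1.87 to 2.34 CPM for RFP+ MHCIIhi and 1.67 to 2.92 CPM for RFP- MHCIIhi libraries and passed the test in no comparison. Of 7 platelet and megakaryocyte markers, 6 were higher and none lower in RFP+ MHCIIlo against RFP- MHCIIlo (all genes 28.9% higher). These 7 were low: they summed to 5.94 to 15.5 CPM for RFP+ and 2.87 to 5.42 CPM for RFP- MHCIIlo libraries. At high MHC class II the sum was 31.1 to 38.8 CPM for RFP+ and 25.9 to 30.7 CPM for RFP- libraries.

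**Figure D4:**
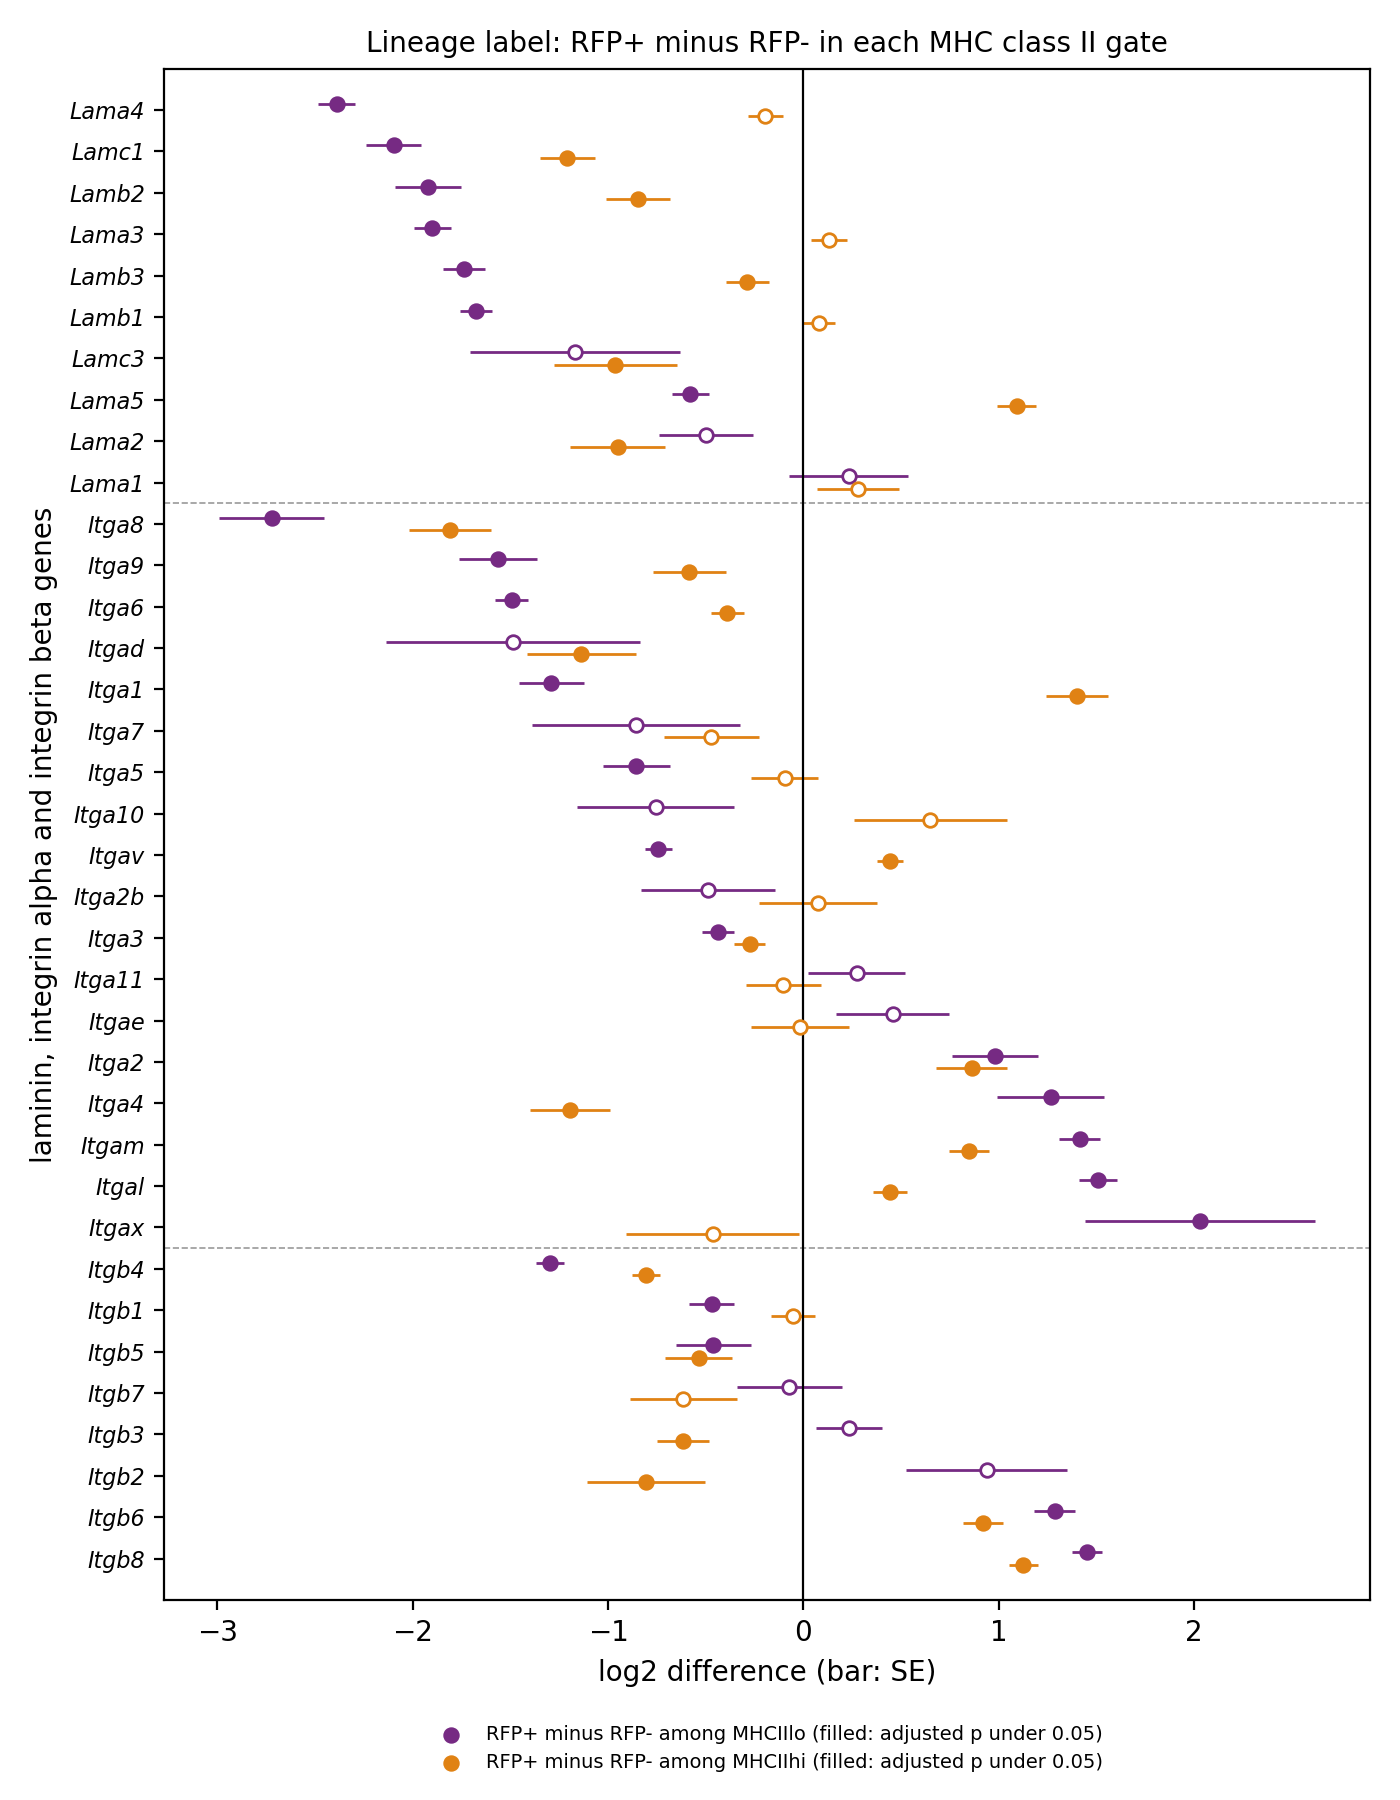
Log2 difference (horizontal axis, bar: SE) of RFP+ minus RFP- cells for the laminin and integrin genes, in the MHCIIlo gate (purple) and the MHCIIhi gate (orange). Filled points have an edgeR adjusted p under 0.05. Lama3, Lama4, Lamb1 and Lamb3 are far to the left in MHCIIlo and near 0 in MHCIIhi, Itgb8 and Itgb6 are to the right in both, and Lama5, Itga1, Itgav and Itga4 have filled points on opposite sides of 0.

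Whether the label difference itself depended on the gate was tested as the difference at low minus that at high MHC class II. It passed the test for 23 of 37 members, 7 with a positive and 16 with a negative value (background 17.5% and 16.6%, 34.1% in all), and the median was -0.39 against 0.04 over all genes. Of 11 laminins, 8 were negative and none positive (median -1.45). Lama4 had -2.20 (SE 0.13), Lama3 -2.03 (SE 0.13), Lamb1 -1.76 (SE 0.12) and Lamb3 -1.45 (SE 0.16), with edgeR adjusted p-values of at most 1.4e-07. Among the positive ones, Itga4 had 2.46 (SE 0.34), Itgb2 1.74 (SE 0.51), Itgal 1.06 (SE 0.13), Itgb3 0.85 (SE 0.22), Itgam 0.57 (SE 0.15) and Itgb8 0.33 (SE 0.11). With limma-voom the adjusted p of Itgb2 was 0.088 and that of Itgax 0.087. The call of Itga8 (-0.91) was lost without RFP+ MHCIIlo replicates 2 or 3, RFP- MHCIIlo replicates 2 or 4, RFP+ MHCIIhi replicates 1, 2, 3 or 4 or RFP- MHCIIhi replicates 1, 2, 3 or 4 (adjusted p = 0.054 to 0.11). The call of Itgb1 (-0.42) was lost without RFP+ MHCIIlo replicates 1, 2 or 3, RFP- MHCIIlo replicates 1, 3 or 4, RFP+ MHCIIhi replicates 3 or 4 or RFP- MHCIIhi replicates 2 or 3 (adjusted p = 0.052 to 0.099), and that of Itgb8 without RFP+ MHCIIlo replicate 3, RFP+ MHCIIhi replicates 1 or 2 or RFP- MHCIIhi replicates 1 or 3 (adjusted p = 0.051 to 0.073). Itgb6 did not pass (0.37, SE 0.15, edgeR adjusted p = 0.056). Thus Lama5, Itga1 and Itgav fell with the label at low and rose at high MHC class II, and Itga4 did the reverse, each with a test of the difference past the threshold.

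**Figure D5:**
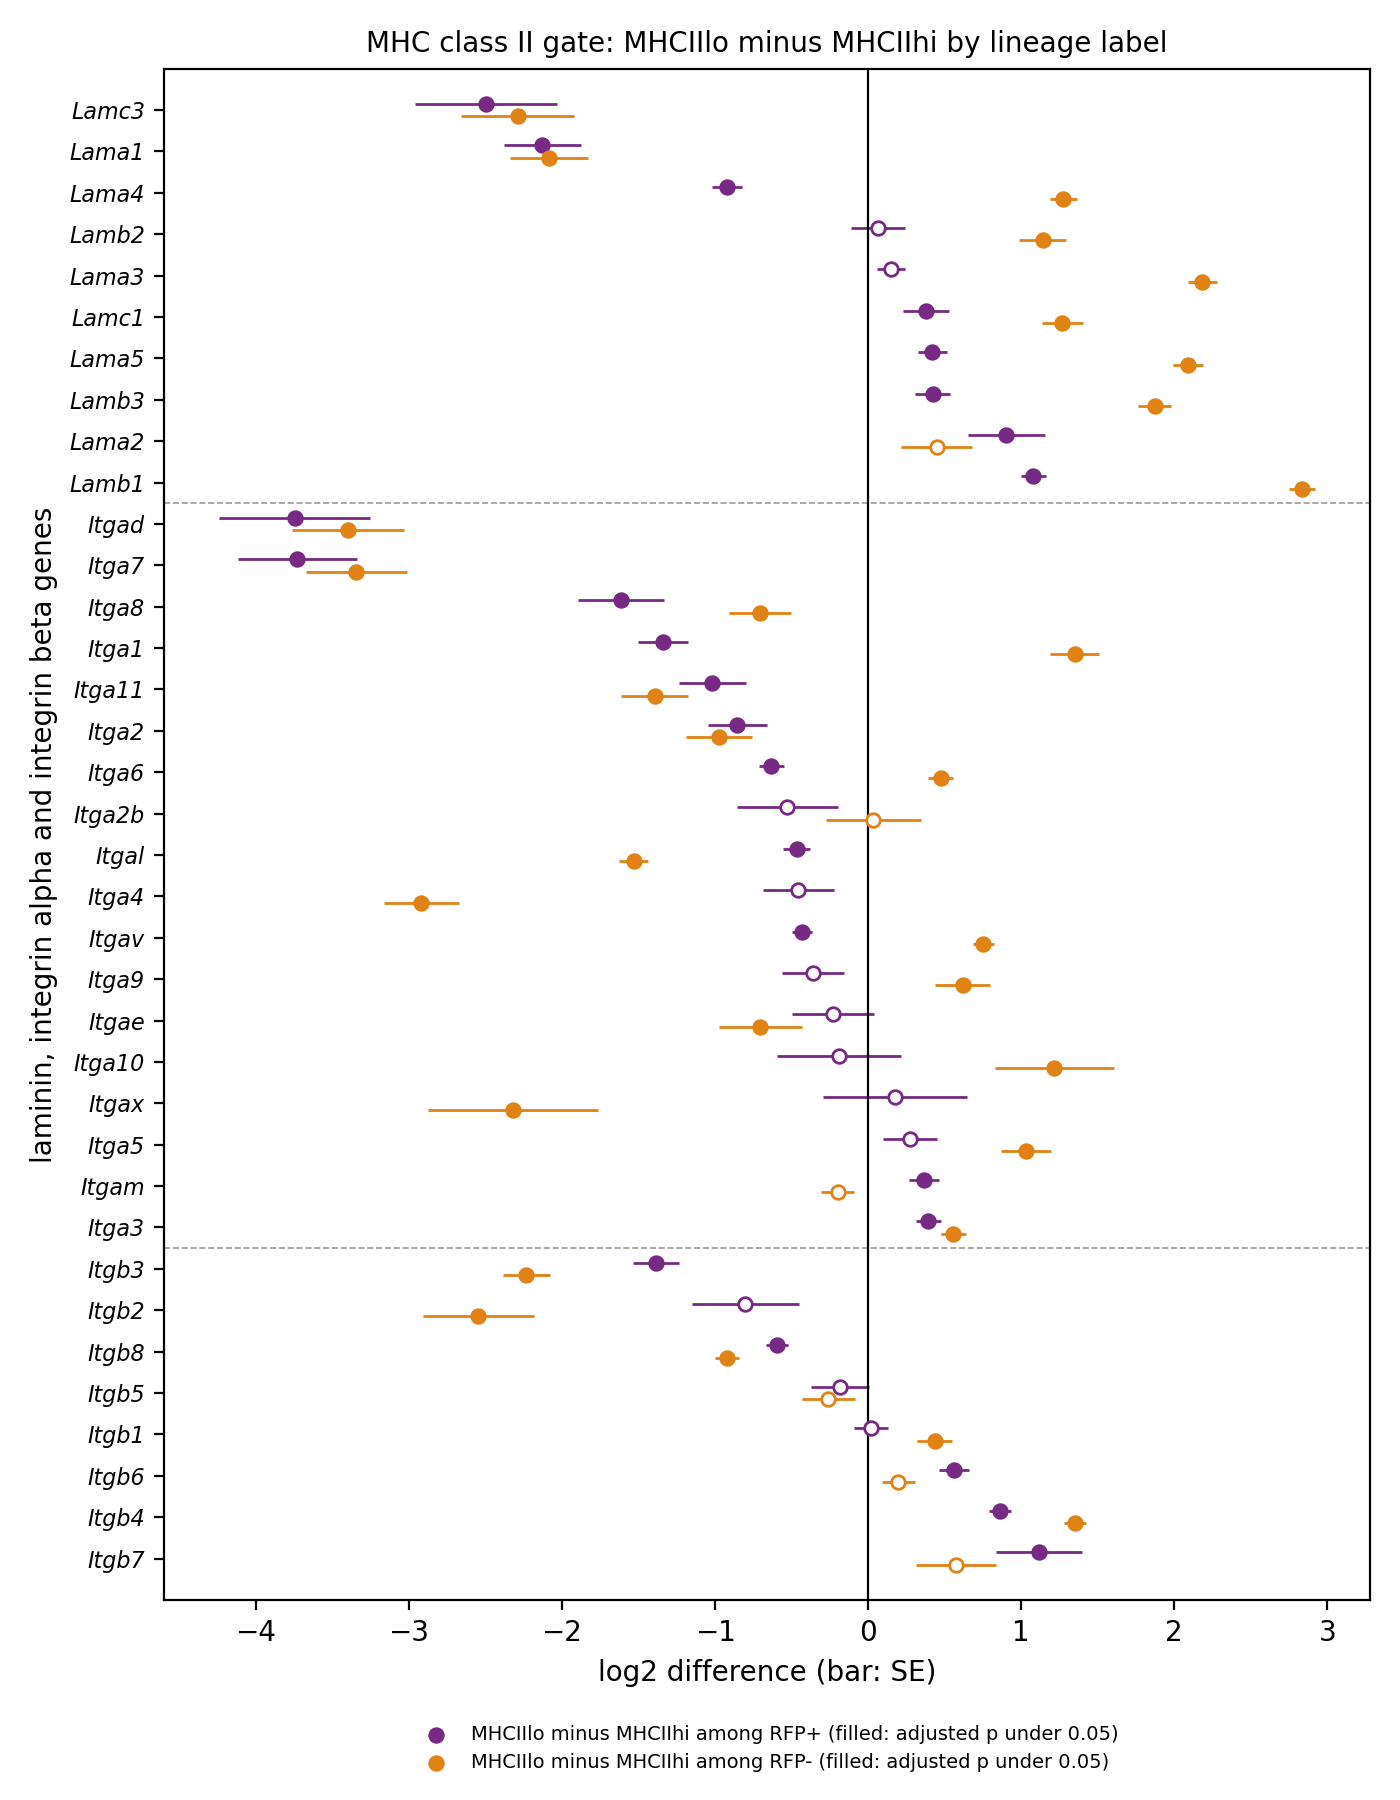
Log2 difference (horizontal axis, bar: SE) of MHCIIlo minus MHCIIhi cells for the laminin and integrin genes, among RFP+ (purple) and RFP- cells (orange). Filled points have an edgeR adjusted p under 0.05. Among RFP- cells most laminins lie to the right, up to 2.84 for Lamb1, and Lama4, Itga1, Itga6 and Itgav have filled points on opposite sides of 0.

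The partners of laminins and integrins were taken from lists of known genes. Of 15 other basement membrane genes, 13 fell and none rose in RFP+ MHCIIlo against RFP- MHCIIlo (median -1.49), so 86.7% were called against 51.6% of all genes. Col4a1, the main type IV collagen chain, averaged 71.7 CPM for RFP+ and 306 CPM for RFP- MHCIIlo cells (log2 difference -2.09, SE 0.10, edgeR adjusted p = 5.9e-14), and Hspg2 (perlecan) 45.2 and 127 CPM (log2 difference -1.49, SE 0.09, edgeR adjusted p = 3.3e-12). Agrn (agrin), a laminin-binding proteoglycan, averaged 106 CPM for RFP+ MHCIIlo, 212 CPM for RFP- MHCIIlo, 83.1 CPM for RFP+ MHCIIhi and 42.3 CPM for RFP- MHCIIhi cells, with log2 differences of -0.995 with the label at low and 0.97 at high MHC class II, the pattern of Lama5. Between RFP- MHCIIlo and RFP- MHCIIhi 9 of the 15 rose and 3 fell (80% called, all genes 69.1%), and among the rises was Col4a4 (30.2 against 2.88 CPM, log2 difference 3.39, SE 0.23). In RFP+ MHCIIhi against RFP- MHCIIhi 2 rose and 4 fell, among them Npnt (nephronectin, the ligand of the Itga8 integrin, -1.19, SE 0.11), and in RFP+ MHCIIlo against RFP+ MHCIIhi 3 rose and 4 fell. These shares, 40% and 46.7%, are below the 45% and 55.6% of all genes called in the same comparisons.

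Of 6 hemidesmosome genes, 5 fell and none rose with the label at low MHC class II (median -0.97), against 3 rises and 1 fall at high MHC class II. The called shares were 83.3% and 66.7%, and over all genes 51.6% and 45%. All 6 had a negative difference between the gates that passed the test, as did 16.6% of all genes. Krt14, a basal keratin, averaged 97.5 CPM for RFP+ and 437 CPM for RFP- MHCIIlo cells (log2 difference -2.17, SE 0.11, edgeR adjusted p = 2.2e-13), and Dst, the linker of keratin filaments to Itgb4, 43.7 and 95.2 CPM (log2 difference -1.12, SE 0.09, edgeR adjusted p = 1.9e-10). Col17a1, the hemidesmosomal collagen, averaged 36.3 CPM for RFP+ MHCIIlo, 43.0 CPM for RFP- MHCIIlo, 102 CPM for RFP+ MHCIIhi and 59.9 CPM for RFP- MHCIIhi cells, with its highest mean in RFP+ MHCIIhi, and its label difference at low MHC class II did not pass the test (log2 difference -0.24, SE 0.11, edgeR adjusted p = 0.061). Of 5 laminin receptors that are not integrins, 3 fell and 2 rose with the label at low MHC class II: Bcam (Lutheran, a Lama5 receptor) averaged 15.8 CPM for RFP+ and 118 CPM for RFP- MHCIIlo cells (log2 difference -2.90, SE 0.13, edgeR adjusted p = 2.9e-14), Dag1 (dystroglycan) 159 and 306 CPM (log2 difference -0.94, SE 0.08, edgeR adjusted p = 8.7e-10), and Sdc1 (syndecan-1) 91.4 and 51.0 CPM (log2 difference 0.84, SE 0.11, edgeR adjusted p = 8.2e-07). All 5 were thus called, against 51.6% of all genes. All 5 were also higher in RFP- MHCIIlo than in RFP- MHCIIhi, where 33.5% of all genes were higher. At high MHC class II 2 rose with the label, Sdc1 by 1.89 (SE 0.12) and Sdc4 by 0.45 (SE 0.10). None fell there, where 23.8% of all genes rose and 21.2% fell. The share called in either direction was 40%, against 45% of all genes. In RFP+ MHCIIlo against RFP+ MHCIIhi 4 of the 6 hemidesmosome genes rose and 1 fell, and 3 of these 5 receptors rose and 1 fell, where 27.5% of all genes rose and 28.1% fell.

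Of 15 other integrin ligands, 8 fell and 2 rose with the label at low MHC class II, and 3 fell and 2 rose at high MHC class II. The called share of 66.7% at low MHC class II compares with 51.6% of all genes, and that of 33.3% at high MHC class II is below the 45% of all genes. Fn1 (fibronectin) averaged 43.4 CPM for RFP+ MHCIIlo, 163 CPM for RFP- MHCIIlo, 242 CPM for RFP+ MHCIIhi and 237 CPM for RFP- MHCIIhi cells, and Vcam1, the ligand of the Itga4 and Itga9 integrins, 63.3 CPM for RFP+ MHCIIlo, 215 CPM for RFP- MHCIIlo, 305 CPM for RFP+ MHCIIhi and 343 CPM for RFP- MHCIIhi cells. Both were lowest in RFP+ MHCIIlo, with label differences of -1.91 (SE 0.11) and -1.76 (SE 0.10) at low MHC class II. Tnc (tenascin-C) averaged 1068 CPM for RFP+ MHCIIlo, 838 CPM for RFP- MHCIIlo, 717 CPM for RFP+ MHCIIhi and 700.1 CPM for RFP- MHCIIhi cells, and rose with the label at low MHC class II (log2 difference 0.35, SE 0.09, edgeR adjusted p = 0.0035). Madcam1, the ligand of the pair of Itga4 and Itgb7, averaged 0.776 CPM for RFP+ MHCIIlo, 0.497 CPM for RFP- MHCIIlo, 16.6 CPM for RFP+ MHCIIhi and 40.6 CPM for RFP- MHCIIhi cells. Between RFP- MHCIIlo and RFP- MHCIIhi 7 of the 15 rose and 7 fell (93.3% called, all genes 69.1%), and between RFP+ MHCIIlo and RFP+ MHCIIhi 3 rose and 7 fell (66.7%, all genes 55.6%). Of 21 tested adaptors that link integrins to actin, 14 fell and 3 rose with the label at low and 7 fell and 8 rose at high MHC class II (81% and 71.4% called, all genes 51.6% and 45%). There were 11 rises and 5 falls between RFP- MHCIIlo and RFP- MHCIIhi and 7 rises and 6 falls between RFP+ MHCIIlo and RFP+ MHCIIhi. Their called shares of 76.2% and 61.9% are near the 69.1% and 55.6% of all genes. Tln1 (talin), which activates integrins, averaged 73.0 CPM for RFP+ and 125 CPM for RFP- MHCIIlo cells (log2 difference -0.77, SE 0.08, edgeR adjusted p = 1.3e-08). Fermt2 (kindlin-2) averaged 14.8 and 49.2 CPM in the same groups (log2 difference -1.75, SE 0.14, edgeR adjusted p = 2.7e-10). Fermt3, the kindlin of blood cells, averaged 3.11 and 1.35 CPM (log2 difference 1.19, SE 0.39, edgeR adjusted p = 0.014). Ilk, the adaptor that binds integrin beta tails, had too few reads to be tested, and 76.7% of its exon bases overlap Taf10 on the opposite strand.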

How the data were processed

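Poly(A) RNA of sorted cells was amplified (NuGen Ovation V2) before Nextera XT library preparation, per the labels' protocols. The authors deposited raw counts per Ensembl gene, 1 table for each of 16 libraries, and the submitters' processing notes name STAR, DESeq2 and the build GRCm38. Neither counting tool, annotation release nor strand use is stated there, and reads of overlapping or antisense genes could be mixed. Symbols, coordinates and exon lengths came from GENCODE M21 (GRCm38), which named 42462 of 43432 identifiers; 970 had no symbol. Members were chosen by symbol, and members and partner lists were chosen with earlier results of these data known. The counts over members cover all 37, and 1 member is not reported here on its own. The analysis used edgeR 4.0.16 in R 4.3.3: filterByExpr (minimum count 10, minimum total 15) left 19617 genes, TMM scaled the libraries, and the 4 groups of all 16 libraries were fitted together by quasi-likelihood. The 4 contrasts and the difference of label effects between gates were tested, with Benjamini-Hochberg adjustment within each and a threshold of 0.05. A rise, fall or change is a call past that threshold. CPM are TMM-normalised; levels of different genes are compared as CPM per kb of exon, since amplification and length affect raw CPM.

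Genes named with values per library were, in each comparison, the 6 called members with the largest absolute log2 difference in each direction among those with a group mean of at least 5 CPM, and the chains of the epithelial laminins and their receptors; of the partner lists, a few set genes and at most 3 with the largest differences. Alternatives were the size factors of DESeq2 1.42.0, no filter, a filter of 10 reads in 4 libraries, DESeq2, limma-voom (limma 3.58.1), the groups of a comparison alone, a replicate block and leaving out each library; leaving out RFP+ MHCIIlo replicates 1 and 4 together was chosen after seeing the data. No pair of libraries of a group agreed within sampling noise. Library totals of 7.93 to 19.46 M reads limit the precision of members below about 5 CPM.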

Additional observations from a re-analysis of the deposited data

Results flagged for a closer look

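In 8 of 148 groups of 4 libraries, 1 library lay so far from the other 3 that its gap exceeded Dixon's 95% critical value, where 7.4 would be so by chance at 1 in 20. Itga4 was at 2.27 CPM for RFP+ MHCIIlo replicate 1, against 4.99 to 5.31 CPM in the other 3 libraries. Itgam was at 50.4 CPM in the same library, against 68.3 to 72.0 CPM. In RFP- MHCIIlo, Itgav was at 166 CPM in replicate 1 (others 183 to 185 CPM), Itgae at 1.49 CPM in replicate 1 (others 2.29 to 2.41 CPM) and Lamc3 at 1.28 CPM in replicate 3 (others 0.594 to 0.688 CPM). Itgad was at 2.52 CPM for RFP+ MHCIIhi replicate 3 (others 2.03 to 2.10 CPM). In RFP- MHCIIhi, Itga11 was at 3.76 CPM in replicate 1 (others 4.88 to 4.99 CPM) and Itga10 at 0.804 CPM in replicate 4 (others 1.16 to 1.23 CPM).

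The label effect (RFP+ minus RFP-) differed between the MHC class II gates for 23 members by the interaction contrast of edgeR. As the effect at low minus that at high MHC class II on the log2 scale, negative ones were Itga1 -2.69, Lama4 -2.20, Lama3 -2.03, Lamb1 -1.76, Lama5 -1.67, Lamb3 -1.45, Itgav -1.18, Itga6 -1.11, Lamb2 -1.08, Itga9 -0.98, Itga8 -0.91, Lamc1 -0.89, Itga5 -0.76, Itgb4 -0.49 and Itgb1 -0.42. Positive ones were Itgax 2.50, Itga4 2.46, Itgb2 1.74, Itgal 1.06, Itgb3 0.85, Itgam 0.57 and Itgb8 0.33. Those of Itga1, Lama5 and Itgav came from calls of opposite direction in the 2 gates, lower in RFP+ MHCIIlo and higher in RFP+ MHCIIhi, and that of Itga4 from calls in the reverse directions.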

How the results depend on the processing

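The number of members past the threshold stayed within 1.5 times its value under every alternative: 25 members in RFP+ MHCIIlo against RFP- MHCIIlo (23 to 28), 25 in RFP+ MHCIIlo against RFP+ MHCIIhi (24 to 28), 24 in RFP+ MHCIIhi against RFP- MHCIIhi (22 to 28), 31 in RFP- MHCIIlo against RFP- MHCIIhi (30 to 34) and 23 for the label effect between gates (20 to 24). Of 185 member differences 128 were called, 115 of them under every alternative listed in the methods, and no called difference turned its sign. Calls lost under at least 1 alternative number 13 and include those of Itga8, Itgb1, Itgb2, Itgax and Itgb8 in the label effect between gates. Equal replicate numbers are not said to share a pool of thymi: over 24 same-numbered pairs the correlation of deviations from the group means was -0.019 to 0.129, 4 of them over 0.1, and 15 of 16 libraries correlated best with a library of their own number. With the replicate number as a block the counts were 26, 27, 24, 31 and 23, with 0 calls lost and 3 gained.

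Differences that turned their sign were all uncalled, with an adjusted p of at least 0.11, and the cause was not tested. With DESeq2 size factors, Itgb1 had -0.0234 in RFP+ MHCIIlo against RFP+ MHCIIhi, Fermt2 had -0.0273 in RFP+ MHCIIlo against RFP+ MHCIIhi, Itga2b had -0.0187 in RFP- MHCIIlo against RFP- MHCIIhi. Without a filter on low counts, Itgb1 had -0.0458 in RFP+ MHCIIlo against RFP+ MHCIIhi, Fermt2 had -0.046 in RFP+ MHCIIlo against RFP+ MHCIIhi, Itgae had 0.00862 in RFP+ MHCIIhi against RFP- MHCIIhi. Without RFP+ MHCIIlo replicates 1 and 4 (chosen after seeing the data), Itgb7 had 0.00253 in RFP+ MHCIIlo against RFP- MHCIIlo, Itgae had 0.0148 in RFP+ MHCIIlo against RFP+ MHCIIhi, Itgb1 had -0.21 in RFP+ MHCIIlo against RFP+ MHCIIhi, Itgad had 0.16 in the label effect between gates, Itgb5 had -0.26 in the label effect between gates, Lama1 had 0.31 in the label effect between gates. With limma-voom, Itgax had -0.47 in RFP+ MHCIIlo against RFP+ MHCIIhi, Fermt2 had -0.0447 in RFP+ MHCIIlo against RFP+ MHCIIhi, Itgad had 0.19 in the label effect between gates. With DESeq2, Itgb1 had -0.0237 in RFP+ MHCIIlo against RFP+ MHCIIhi, Fermt2 had -0.0246 in RFP+ MHCIIlo against RFP+ MHCIIhi, Itga2b had -0.0198 in RFP- MHCIIlo against RFP- MHCIIhi. Leaving out 1 library at a time, the lowest and highest values were in RFP+ MHCIIhi against RFP- MHCIIhi Itga2b -0.0273 to 0.25, Itga5 -0.15 to 0.0107, Itgae -0.15 to 0.12, Ptk2 -0.10 to 0.0154, Tnc -0.036 to 0.10; in RFP- MHCIIlo against RFP- MHCIIhi Itga2b -0.0603 to 0.22; in the label effect between gates Itga2 -0.14 to 0.27, Itga7 -0.78 to 0.0836, Itgad -0.72 to 0.50, Itgb5 -0.0553 to 0.19, Lama1 -0.48 to 0.18, Lamc3 -1.11 to 0.17; in RFP+ MHCIIlo against RFP- MHCIIlo Itgb7 -0.21 to 0.0473, Lama1 -0.20 to 0.46; in RFP+ MHCIIlo against RFP+ MHCIIhi Fermt2 -0.10 to 0.20, Itga10 -0.73 to 0.10, Itgax -0.26 to 0.56, Itgb1 -0.13 to 0.0887, Lamb2 -0.18 to 0.22.

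Of called members, Itgad in RFP- MHCIIlo against RFP- MHCIIhi moved to -4.24 without RFP- MHCIIlo replicate 3 and Lamc3 in RFP+ MHCIIlo against RFP+ MHCIIhi to -3.39 without RFP+ MHCIIlo replicate 4. Members below about 5 CPM are limited by depth, most of all in RFP+ MHCIIlo replicates 1 to 3, which had the lowest read totals. All RFP+ MHCIIlo libraries were made from fewer cells than those of the other groups.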
